A study of Mus musculus with 41 samples.

Results

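Mouse microglia kept in culture for 7 d were compared with microglia kept in the same culture for 24 h, gene by gene. The comparison uses 8 of the 41 samples of the series, 5 RNA libraries of 7 d and 3 of 24 h, taken by their column names in the count table, and covers all 24537 genes of that table, of which 13840 had enough counts to be tested. The 7 d group holds C57Bl6 microglia cultured for 7 d with IL-34 and without TGFβ, and the 24 h group holds C57Bl6 microglia cultured for 24 h with IL-34 and without TGFβ. Replicate 2 of the 24 h group is labelled 22 h and was kept with its group. The cells of both groups had been sorted from the brain and plated in DMEM/F12 with 5% heat-inactivated serum. The medium was never changed during the culture and IL-34, which signals through the CSF1 receptor, was added every day, so time in culture and the ageing of the medium cannot be told apart. Each library came from poly(A) RNA of 100000 to 150000 cells. The labels do not say whether the replicates of a group came from separate animals or cultures. The p-values below therefore set differences against the spread between libraries, whatever its source. The other microglial libraries (5 ex vivo, 2 of 6 h, and 2 of 7 d with IL-34 and TGFβ) entered the statistical model to estimate the spread.

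Microglia are the resident macrophages of the brain. They depend on signals from the CSF1 receptor for survival and on TGFβ and other signals of the brain for their tissue-specific genes, such as the purinergic receptor gene P2ry12 and the fractalkine receptor gene Cx3cr1. Removal from the brain leads to a loss of this program and a burst of stress and inflammatory genes. A macrophage that stays in culture takes up material, builds lysosomes and exports cholesterol through genes controlled by the LXR receptors, and may enter the cell cycle. The step from 24 h to 7 d follows the early loss.

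Libraries held 24186690 to 28024478 counts at 7 d and 21339628 to 21869995 counts at 24 h. Correlations of log2 CPM (CPM, counts scaled to a common total on effective library sizes) were 0.957 to 0.993 between libraries of 7 d, 0.988 to 0.990 between libraries of 24 h, and 0.896 to 0.933 across the groups. The 10 most abundant genes took 11.8 ± 0.75% of counts at 7 d and 7.81 ± 0.09% at 24 h (SD, n = 5 and 3). An exact permutation test of this difference gave p = 0.0357 (2-sided; adjusted p = 0.0714 over 4 library measures), which is the smallest 2-sided p that 5 libraries against 3 allow. Replicates 2 and 3 of 7 d stood apart from replicates 1, 4 and 5: 430 of the 13840 genes tested (3.11%) lay at least 2-fold above in both, and 114 (0.824%) at least 2-fold below in both. Genes whose symbols start with Rpl or Rps and a digit were taken for ribosomal protein genes. This pattern leaves out members such as Rplp2 and can take in other genes with such symbols. These genes took 0.658% of counts in both of these libraries, 0.278% to 0.350% in the other 3 libraries of 7 d, and 0.310% to 0.333% at 24 h. The ribosomal RNA precursor Rn45s, which poly(A) selection should remove, had 4725, 535, 533, 3491 and 5001 CPM at 7 d, against 5934, 2476 and 2209 CPM at 24 h. The lowest of the 8 libraries were replicates 2 and 3 of 7 d. The part of these differences between libraries in the results below was not tested, and calls that are lost without replicates 2 and 3 are named beside the gene.

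Between 24 h and 7 d 48.8% of the genes tested changed. At an adjusted p of 0.05 in edgeR's quasi-likelihood test, 3769 genes were called higher at 7 d (27.2% of those tested) and 2985 were called lower (21.6%). Of these, 2276 were at least 2-fold higher (16.4%) and 1248 at least 2-fold lower (9.02%), and 1069 were at least 4-fold higher and 503 at least 4-fold lower. The libraries of 7 d all lay above those of 24 h for 3805 genes (27.5%) and all below for 3456 genes (25%), so that 52.5% of genes separated the groups. The median log2 difference of all genes tested was 0.06, with quartiles of -0.46 and 0.77. With limma on the deposited TPM values (counts corrected for gene length and scaled within each library) 2657 genes were called higher and 3851 lower, and without TMM scaling 3189 were called higher and 3559 lower, so the split between directions depended on the scaling. The TPM fit moved the median of all genes by -0.16 on the log2 scale. In bulk libraries such as these, more cells of a kind and more RNA per cell cannot be told apart.

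**Figure D1:**
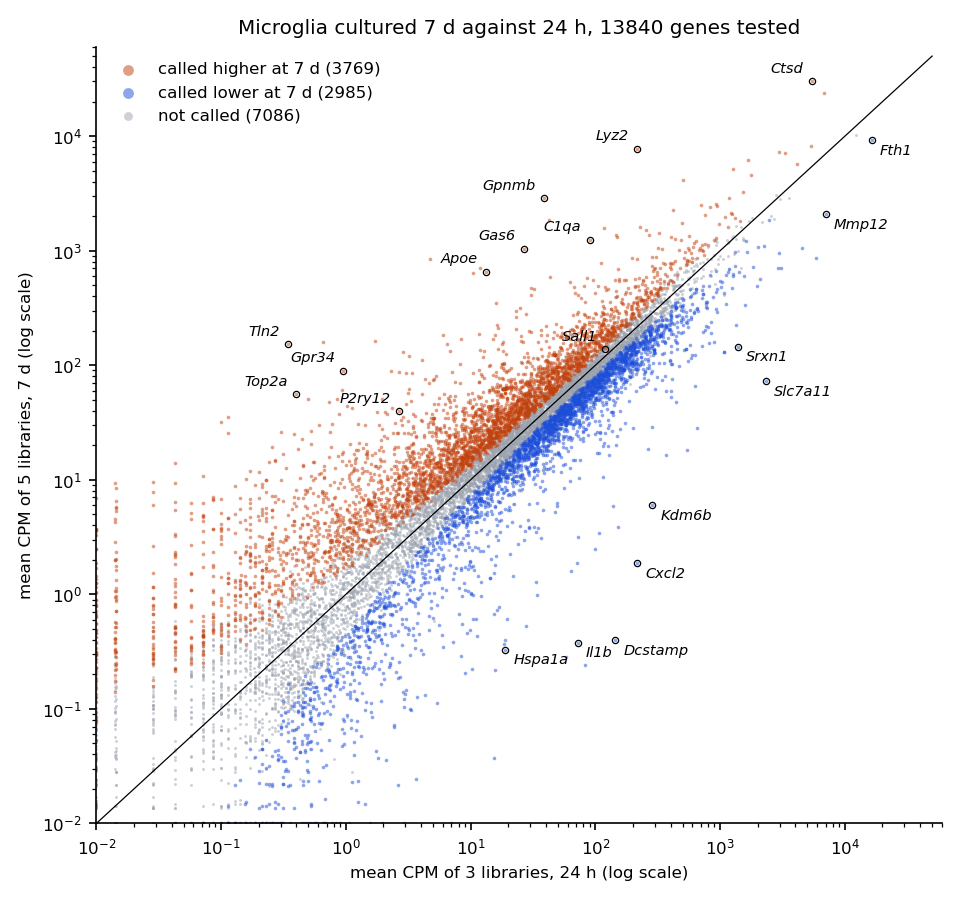
Mean CPM of each of the 13840 genes tested, over 5 libraries of 7 d (vertical axis, log scale) and 3 libraries of 24 h (horizontal axis, log scale), with genes called higher at 7 d, called lower at 7 d and not called in separate colours, and means under 0.01 CPM drawn at 0.01. The line marks equal levels, and the named genes far above it (such as Lyz2, Gpnmb and Apoe) and far below it (such as Il1b, Dcstamp and Cxcl2) are those with large differences.

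In TPM, which allows levels of different genes to be compared, the most abundant genes differed between the times. Ranks are among the genes of a reduced table, whose columns sum to 614216 to 638757 TPM in these 8 libraries, and the ranks of genes that share reads with near copies are uncertain. Ctsd, the lysosomal protease cathepsin D, was the most abundant gene at 7 d with 25539 ± 3759.8 TPM at 7 d, against 5257 ± 679 TPM at 24 h, where it ranked 6. Fth1, the ferritin heavy chain that stores iron, was the most abundant gene at 24 h, with 16333 ± 6179.7 TPM at 7 d, against 32781 ± 3889.7 TPM at 24 h. Lyz2, the lysozyme of macrophages, ranked 3 with 12267 ± 5197 TPM at 7 d, against rank 171 with 385 ± 103 TPM at 24 h. Hmox1, which breaks down heme, ranked 44 with 1107 ± 221 TPM at 7 d, against rank 3 with 5459 ± 1316 TPM at 24 h. Lpl, the lipase that frees fatty acids from lipoproteins, remained among the 10 highest at both times, with 4184 ± 235 TPM at 7 d and 5747 ± 1106 TPM at 24 h, and its difference in counts was not called (adjusted p = 0.475). Ferritin heavy chain has processed pseudogenes, so its counts are less certain than the others.

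Of 24 gene lists compared, those in which most members were higher at 7 d were the cell cycle (27 of 32 tested), the respiratory chain (19 of 25), Fc receptors and complement (12 of 16), the lysosome (21 of 30), homeostatic microglia (16 of 24) and lipid export and LXR targets (9 of 15). Those in which most members were lower were the Nrf2 and antioxidant genes (17 of 24), inflammatory mediators (16 of 26) and growth factors and their receptors (12 of 20). These shares stand against 27.2% higher and 21.6% lower among all genes tested. Median log2 differences of the lists ran from 2.31 for the cell cycle to -1.81 for the immediate-early genes, against 0.06 over all genes. Without replicates 2 and 3 of 7 d the median of the cell cycle was 1.33, below 1.60 for Fc receptors and complement, 1.59 for homeostatic microglia and 1.55 for lipid export, so its place rests on those libraries. Medians near 0 changed sign in that fit for antigen presentation (0.24 as reported and -0.06 without them) and the integrated stress response (0.13 and -0.02).

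**Figure D2:**
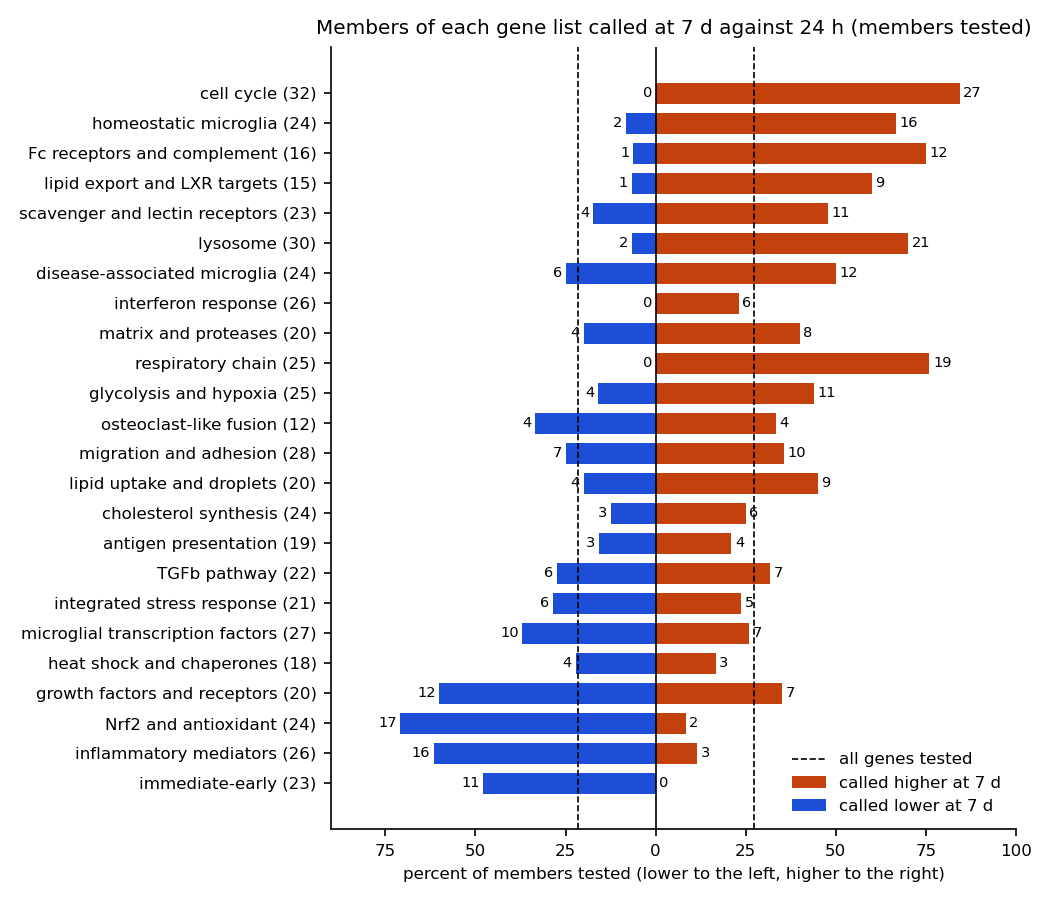
Percent of the tested members of each of 24 gene lists called higher at 7 d than at 24 h (bars to the right) and called lower (bars to the left), with the count of members beside each bar and the number tested in brackets. The dashed lines give the same percentages over all 13840 genes tested, 27.2 higher and 21.6 lower, and the bars of the cell cycle, respiratory chain and complement lists reach far beyond the right line while those of the Nrf2, inflammatory and growth factor lists reach beyond the left one.

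Genes that mark homeostatic microglia in the brain were higher at 7 d than at 24 h for 16 of the 24 tested, 2 were lower, and the median log2 difference was 1.76. P2ry12, a purinergic receptor that guides the processes of resting microglia, had 46.4, 37.2, 43.5, 30.4 and 39.9 CPM at 7 d, against 4.27, 1.83 and 1.89 CPM at 24 h. All libraries of 7 d lay above those of 24 h (log2 difference 3.89 ± 0.44, adjusted p = 3.38e-06). Fcrls, an Fc receptor-like gene of microglia, had 656, 642, 957, 307 and 640.3 CPM at 7 d, against 15.9, 7.89 and 7.43 CPM at 24 h. Its groups did not overlap, and replicate 4 was the lowest of 7 d (log2 difference 5.94 ± 0.46, adjusted p = 6.14e-08). Gpr34, a receptor for lysophosphatidylserine, had 92.0, 81.9, 122, 33.4 and 120.1 CPM at 7 d, against 1.45, 0.768 and 0.645 CPM at 24 h. Its 5 libraries of 7 d lay far above, again with replicate 4 lowest (log2 difference 6.55 ± 0.68, adjusted p = 1.92e-06). It was among the 10 largest rises of genes whose groups did not overlap and that averaged at least 20 CPM in 1 group. Tmem119, a membrane protein used to mark microglia, had 27.4, 14.2, 17.5, 9.62 and 14.6 CPM at 7 d, against 3.63, 1.66 and 2.06 CPM at 24 h, with no overlap (log2 difference 2.76 ± 0.36, adjusted p = 1.27e-05). Csf1r and Cx3cr1, further marks of microglia, were abundant in all 8 libraries, whereas P2ry12 and Tmem119 stayed under 5 CPM in every library of 24 h. Cx3cr1 had 1096, 1034, 1219, 608 and 857 CPM at 7 d, against 693, 511 and 537 CPM at 24 h. Replicate 4 of 7 d lay below replicate 1 of 24 h, so the groups overlapped, and the gene was called higher (log2 difference 0.73 ± 0.20, adjusted p = 0.0062). Selplg, the selectin ligand PSGL-1, had 193, 182, 198, 199 and 179 CPM at 7 d, against 55.0, 62.6 and 44.6 CPM at 24 h, and its 5 libraries of 7 d lay within 179 to 199 CPM (log2 difference 1.82 ± 0.17, adjusted p = 2.83e-07).

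Also called higher were P2ry13 (log2 difference 3.09), Olfml3 (3.22), Adgrg1 (1.57), Bin1 (0.58), Slco2b1 (3.65), Trem2 (1.62), C1qa (3.80), Cst3 (2.33) and Ltc4s (3.38). Bin1 was not called without replicate 1 of 24 h (adjusted p = 0.0506). For P2ry12 and Tmem119 the rise was partial when set beside cells taken directly from the brain. P2ry12 averaged 4413 ± 1515 CPM ex vivo, 7.65 ± 5.21 CPM at 6 h, 2.66 ± 1.39 CPM at 24 h and 39.5 ± 6.15 CPM at 7 d (SD; n = 5, 2, 3 and 5). Tmem119 averaged 2814 ± 397 CPM ex vivo, 10.4 ± 5.92 CPM at 6 h, 2.45 ± 1.04 CPM at 24 h and 16.7 ± 6.61 CPM at 7 d. Both genes remained far below their ex vivo mean at 7 d. This did not hold for every gene named: Trem2 averaged 882 ± 214 CPM at 7 d and 664 ± 162 CPM ex vivo. Against the direction of the list, Tgfbr1, the type I TGFβ receptor, had 659, 292, 329.9, 320.5 and 558 CPM at 7 d, against 1056, 683 and 1055 CPM at 24 h, and fell (log2 difference -1.11 ± 0.27, adjusted p = 0.0027). Rhob, a small GTPase, had 379.7, 287, 278, 273 and 325 CPM at 7 d, against 1046, 884 and 856 CPM at 24 h, and fell as well (log2 difference -1.59 ± 0.29, adjusted p = 0.000289). Sall1, a transcription factor that defines microglia, had 175, 80.5, 108, 157 and 175 CPM at 7 d, against 113, 126 and 122 CPM at 24 h. Its levels in replicates 2 and 3 of 7 d lay below all 3 libraries of 24 h and those in replicates 1, 4 and 5 above them, and it was not called (log2 difference 0.21 ± 0.26, adjusted p = 0.533). Csf1r, the receptor for IL-34 and CSF1, had 1858, 1608, 1892, 1815 and 1714 CPM at 7 d, against 2121, 2519.7 and 1889 CPM at 24 h, and was not called (log2 difference -0.29 ± 0.13, adjusted p = 0.0738). With limma on TPM at a pseudocount of 1 its adjusted p was 0.00202, with DESeq2 it was 0.00886, and in both it was lower at 7 d.

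**Figure D3:**
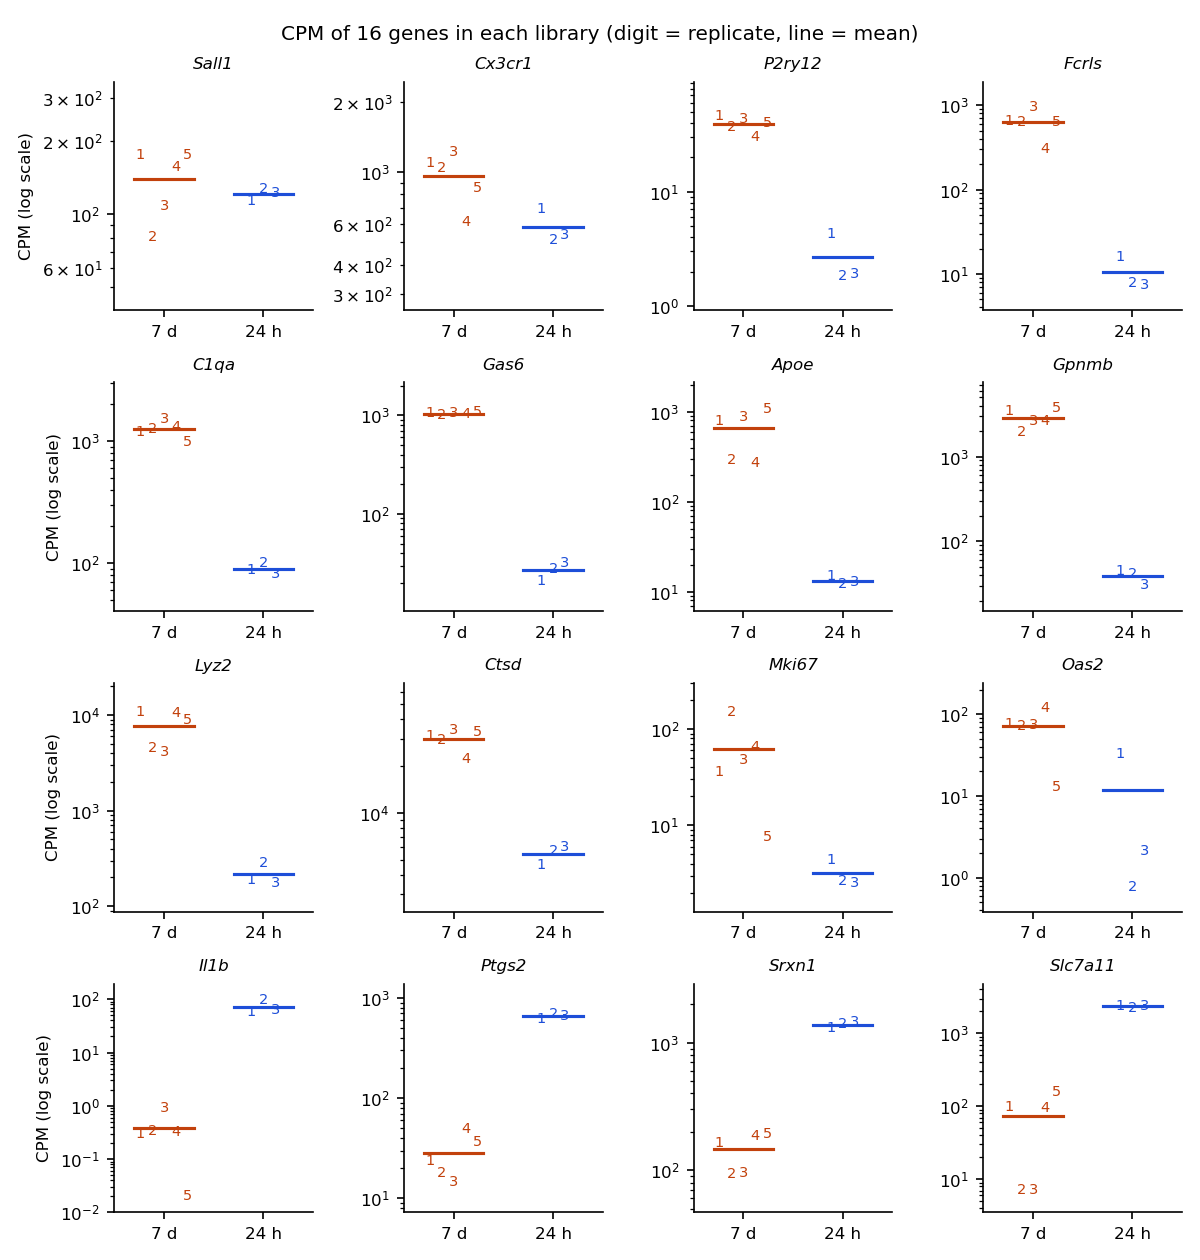
CPM (log scale) of 16 genes in each of the 5 libraries of 7 d and the 3 libraries of 24 h, where the digit is the replicate number and the line is the mean of the group; the 7 d replicate 5 value of Il1b is 0 and is drawn at 0.02. P2ry12, Fcrls, C1qa, Gas6, Apoe, Gpnmb, Lyz2, Ctsd and Mki67 lie higher in every library of 7 d, Il1b, Ptgs2, Srxn1 and Slc7a11 lie lower in every one, and Sall1, Cx3cr1 and Oas2 overlap between the groups.

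The transcription factors that shape microglia and macrophages were called in both directions, with a median log2 difference of -0.20. Of 27, 7 were higher (25.9%, below the 27.2% of all genes) and 10 were lower (37.0%, against 21.6%). Mef2c, a MADS-box factor of the microglial enhancer program, had 440.5, 569.9, 666, 476 and 589 CPM at 7 d, against 160.5, 152 and 150.3 CPM at 24 h, and rose without overlap (log2 difference 1.83 ± 0.20, adjusted p = 1.51e-06). Irf8, an interferon regulatory factor needed for microglial development, had 349, 288, 329, 276 and 318 CPM at 7 d, against 118, 163 and 120.3 CPM at 24 h, and rose (log2 difference 1.22 ± 0.14, adjusted p = 2.96e-06). Maf, a leucine zipper factor of mature macrophages, had 729, 609, 615, 833 and 689.7 CPM at 7 d, against 154, 189.9 and 109 CPM at 24 h (log2 difference 2.20 ± 0.28, adjusted p = 9.01e-06). Cebpa (log2 difference 1.01), Ikzf1 (1.02) and Pparg (1.91), a receptor for fatty acid ligands, were among those higher too. Cebpa was not called without replicate 1 of 24 h (adjusted p = 0.0506). Among those lower, Irf5, which drives inflammatory genes, had 277, 278, 306, 326 and 267 CPM at 7 d, against 622, 649.9 and 579 CPM at 24 h (log2 difference -1.09 ± 0.12, adjusted p = 1.51e-06). Spic, an Ets factor tied to heme-rich macrophages of the spleen, had 0.479, 0.411, 0.706, 0.673 and 0.384 CPM at 7 d, against 17.5, 39.8 and 26.0 CPM at 24 h, and was among the 10 largest falls by the same criteria (log2 difference -5.69 ± 0.35, adjusted p = 8.51e-09). Cebpb, a factor of the inflammatory and acute phase response, had 43.5, 44.9, 40.8, 82.1 and 34.6 CPM at 7 d, against 179, 182 and 199 CPM at 24 h (log2 difference -1.92 ± 0.40, adjusted p = 0.00109). Spi1, which encodes the lineage factor PU.1, had 299, 317, 343, 383 and 314 CPM at 7 d, against 428, 456 and 412 CPM at 24 h. All libraries of 7 d lay below those of 24 h, but the difference was small (log2 difference -0.38 ± 0.15, adjusted p = 0.0429). It was not called without replicate 1, 2 or 3 of 24 h, or replicate 1, 2, 3 or 5 of 7 d, or replicates 2 and 3 of 7 d together (adjusted p = 0.057 to 0.13). Mef2a had 494 ± 69.5 CPM at 7 d and 415 ± 64.8 CPM at 24 h, and Runx1 had 266 ± 75.4 CPM at 7 d and 229.7 ± 13.2 CPM at 24 h (SD). Neither was called (adjusted p = 0.204 and 0.378).

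Opsonin recognition was among the clearest gains. Of 16 tested genes for Fc receptors and complement, 12 were higher, 1 was lower, and the median log2 difference was 1.65, or 0.95 with limma on unfiltered TPM. The 3 chains of C1q, the initiating protein of the classical complement pathway, rose together. C1qa had 1186, 1262, 1513, 1301 and 974 CPM at 7 d, against 88.4, 99.9 and 81.1 CPM at 24 h (log2 difference 3.80 ± 0.27, adjusted p = 2.05e-08). C1qb had 1352, 1220.3, 1517, 1402 and 1092 CPM at 7 d, against 143, 160.3 and 141 CPM at 24 h (log2 difference 3.16 ± 0.23, adjusted p = 2.19e-08). C1qc had 1654, 1423, 1884, 1605 and 1341 CPM at 7 d, against 112, 129.5 and 109 CPM at 24 h (log2 difference 3.76 ± 0.23, adjusted p = 4.41e-09). For each chain replicate 5 was the lowest library of 7 d, and it lay far above every library of 24 h. Fcgr4, an activating receptor for IgG, had 24.4, 22.5, 25.8, 28.8 and 24.0 CPM at 7 d, against 0.384, 0.427 and 0.344 CPM at 24 h, and was nearly absent at 24 h (log2 difference 6.01 ± 0.35, adjusted p = 1.87e-09). Fcgr2b, the inhibitory receptor for IgG, had 120.2, 324, 289, 68.3 and 131 CPM at 7 d, against 11.5, 13.6 and 10.1 CPM at 24 h, with replicates 2 and 3 of 7 d highest (log2 difference 3.99 ± 0.44, adjusted p = 3.54e-06). Fcgr1 (log2 difference 2.19), Fcgr3 (1.87), their signalling chain gene Fcer1g (1.10), the complement genes C3 (2.05), C3ar1 (1.10), C5ar1 (0.58) and Cfp (1.43) were higher as well. C3 was not called without replicate 1, 2 or 3 of 24 h, or replicate 4 of 7 d, or replicates 2 and 3 of 7 d together (adjusted p = 0.0745 to 0.0938). C5ar1 was not called without replicate 3 of 24 h (adjusted p = 0.0525). Itgb2, the shared beta chain of the complement receptors CR3 and CR4, went the other way with 695, 741, 715, 725 and 744 CPM at 7 d, against 1930.4, 1794 and 1727 CPM at 24 h (log2 difference -1.33 ± 0.12, adjusted p = 1.99e-07). Its partner chain gene Itgam was not called, with 1219 ± 280.0 CPM at 7 d and 907 ± 208 CPM at 24 h (SD, adjusted p = 0.0676).

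Receptors that take up modified lipoproteins, sugars and dying cells were higher for 11 of 23 tested scavenger and lectin genes and lower for 4. These are 47.8% and 17.4%, against 27.2% and 21.6% of all genes. The median log2 difference was 1.39, and 0.40 with limma on TPM at a pseudocount of 1. Stab1, an endocytic scavenger receptor, had 8353, 3598, 3458, 7491 and 7837 CPM at 7 d, against 1558, 1753 and 1698 CPM at 24 h (log2 difference 1.88 ± 0.30, adjusted p = 9.32e-05). Replicates 2 and 3 were the lowest of 7 d and lay above all of 24 h. Mrc1, the mannose receptor CD206, had 59.1, 83.6, 54.5, 59.3 and 46.5 CPM at 7 d, against 1.07, 1.15 and 0.559 CPM at 24 h (log2 difference 6.02 ± 0.72, adjusted p = 8.18e-06). Msr1, scavenger receptor A, had 554, 629.8, 479, 644 and 447 CPM at 7 d, against 119.9, 95.8 and 68.8 CPM at 24 h (log2 difference 2.54 ± 0.38, adjusted p = 6.53e-05). Sirpa, the receptor for the inhibitory signal CD47, had 4345, 4187, 5089, 4617 and 4753 CPM at 7 d, against 1593, 1951 and 1730.2 CPM at 24 h (log2 difference 1.39 ± 0.16, adjusted p = 4.04e-06). Scarb1, a receptor for high-density lipoprotein, had 119.9, 98.1, 116, 114 and 117 CPM at 7 d, against 36.5, 34.6 and 33.4 CPM at 24 h (log2 difference 1.70 ± 0.12, adjusted p = 1.24e-08). Scarb2, a lysosomal receptor, had a log2 difference of 1.16. Clec12a, an inhibitory lectin, had 69.8, 313, 288, 129 and 53.3 CPM at 7 d, against 9.30, 8.23 and 7.43 CPM at 24 h, with replicates 2 and 3 highest (log2 difference 4.36 ± 0.89, adjusted p = 0.000998). Cd36 was higher (log2 difference 1.45), but it was not called without replicate 3 of 24 h, or replicates 2 and 3 of 7 d together (adjusted p = 0.106 to 0.108). The 4 lower genes were Clec4e (log2 difference -2.29), Clec7a (-1.24), the lectin dectin-1, Cd300a (-0.88) and Lilrb4a (-1.01).

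The ligands and receptor of the pathway that bridges dying cells to phagocytes rose together. Gas6, a vitamin K-dependent protein that binds phosphatidylserine, had 1046, 1001, 1046, 1030.5 and 1081 CPM at 7 d, against 20.8, 27.7 and 32.0 CPM at 24 h. Its 5 libraries of 7 d lay within 1001 to 1081 CPM, far above 24 h (log2 difference 5.28 ± 0.24, adjusted p = 1.79e-10). Pros1, protein S, which acts in the same way, had 530.3, 417, 413, 501 and 538 CPM at 7 d, against 122, 112 and 125 CPM at 24 h (log2 difference 2.00 ± 0.13, adjusted p = 9.96e-09). Mertk, the receptor tyrosine kinase that both ligands bind, had 446, 297, 386, 376 and 545 CPM at 7 d, against 69.4, 76.0 and 71.6 CPM at 24 h (log2 difference 2.50 ± 0.25, adjusted p = 7.32e-07). Axl, the related receptor linked to inflammation, moved the other way with 21.0, 52.2, 54.1, 19.2 and 4.87 CPM at 7 d, against 189, 64.5 and 75.6 CPM at 24 h. Replicate 5 of 7 d was the lowest and replicate 1 of 24 h the highest (log2 difference -1.85 ± 0.54, adjusted p = 0.0111). It was not called without replicate 1 of 24 h (adjusted p = 0.0898).

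Of the 20 tested growth factors and receptors, 7 were higher (35%, against 27.2% of all genes) and 12 lower (60%, against 21.6%). Igf1, insulin-like growth factor 1, had 1490.4, 1151, 1369, 962 and 1900.4 CPM at 7 d, against 173, 149.9 and 112 CPM at 24 h (log2 difference 3.24 ± 0.45, adjusted p = 2.87e-05). Hgf, hepatocyte growth factor, had 30.5, 8.78, 15.7, 13.1 and 29.2 CPM at 7 d, against 0.896, 0.512 and 0.859 CPM at 24 h (log2 difference 4.68 ± 0.48, adjusted p = 8.12e-07). Its receptor gene Met had 4.38, 1.58, 1.67, 7.29 and 4.57 CPM at 7 d, against 189, 151 and 119 CPM at 24 h (log2 difference -5.30 ± 0.40, adjusted p = 6.11e-08). The ligand was thus higher and the receptor lower in every library of 7 d. Csf2rb, the shared beta chain of the receptors for GM-CSF, IL-3 and IL-5, had 148, 119.7, 148, 122 and 139.9 CPM at 7 d, against 519, 544 and 463 CPM at 24 h, and fell (log2 difference -1.91 ± 0.14, adjusted p = 2.19e-08). Vegfa, vascular endothelial growth factor A, had 2.84, 7.82, 7.13, 5.27 and 2.94 CPM at 7 d, against 41.4, 54.8 and 46.1 CPM at 24 h, and fell (log2 difference -3.19 ± 0.35, adjusted p = 1.95e-06). Vegfb was higher (log2 difference 1.08). Csf1 (log2 difference -1.60), Csf2ra (-0.80), Csf3r (-0.68), Pdgfa (-0.73), Pdgfb (-0.82), Hbegf (-1.58), Osm (-1.62) and Lif (-5.39) were lower. Csf1 was not called without replicate 3 of 24 h (adjusted p = 0.0539), nor was Hbegf without replicate 3 of 24 h (adjusted p = 0.0665).

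Lysosomal genes rose broadly from an already high level. Of 30 tested, 21 were higher, 2 were lower, and the median log2 difference was 0.79. Together the 30 genes had 76588 to 93298 CPM per library at 7 d, against 25376 to 27956 CPM at 24 h. Ctsd and Ctsb hold much of this sum, so it does not measure how broad the rise was. Ctsd had 31313, 29626, 34346, 22091 and 32975 CPM at 7 d, against 4609.9, 5679.8 and 6025 CPM at 24 h. Every library of 7 d held more than 3 times the highest library of 24 h in this gene, and replicate 4 was the lowest (log2 difference 2.47 ± 0.20, adjusted p = 8.39e-08). Ctsb, cathepsin B, had 27986, 19421, 22219, 23859 and 25824 CPM at 7 d, against 6694, 6601 and 7274 CPM at 24 h (log2 difference 1.80 ± 0.15, adjusted p = 1.12e-07). Ctss, a cathepsin that is active outside the lysosome as well, had 3268, 1859, 2274, 2891 and 2309 CPM at 7 d, against 850.5, 599.8 and 659 CPM at 24 h (log2 difference 1.84 ± 0.25, adjusted p = 1.74e-05). Hexa, the alpha chain of hexosaminidase A, had 1355, 1628, 2052, 1337 and 1627 CPM at 7 d, against 196, 241 and 250.1 CPM at 24 h (log2 difference 2.81 ± 0.21, adjusted p = 2.51e-08). Gusb, beta-glucuronidase, had 865, 845, 942, 813 and 899 CPM at 7 d, against 260.3, 342 and 308 CPM at 24 h (log2 difference 1.52 ± 0.13, adjusted p = 1.02e-07). Lamp1, a main protein of the lysosomal membrane, had 2809, 2045, 2313, 2699 and 2883 CPM at 7 d, against 857, 987 and 957 CPM at 24 h (log2 difference 1.45 ± 0.16, adjusted p = 1.58e-06). Atp6v0d2, a subunit of the proton pump found in macrophages and osteoclasts, had 82.7, 48.1, 61.1, 45.9 and 142 CPM at 7 d, against 4.91, 3.58 and 4.43 CPM at 24 h, and replicate 5 was the highest (log2 difference 4.14 ± 0.46, adjusted p = 2.93e-06). The other pump genes changed less: Atp6v1a, Atp6v1b2 and Atp6ap1 had log2 differences of 0.51, 0.31 and 0.46, and Atp6v0d1 and Atp6v1h were not called. Grn, progranulin, was higher (log2 difference 1.53), and so were Ctsl (1.42), Ctsc (1.25), Ctsa (0.85), Ctsk (2.39), Ctsz (0.49), Lamp2 (0.77), Cd68 (0.81) and Neu1 (0.52). The small differences were less firm. Atp6v1a was not called without replicate 1, 2 or 3 of 24 h, or replicate 1, 4 or 5 of 7 d (adjusted p = 0.0528 to 0.127). Atp6v1b2 was not called without replicate 1 or 3 of 24 h (adjusted p = 0.0931 to 0.112), and Atp6ap1 was not without replicate 1 or 3 of 24 h (adjusted p = 0.0514 to 0.0685). For Ctsz the call was lost without replicate 1, 2 or 3 of 24 h, or replicates 2 and 3 of 7 d together (adjusted p = 0.0522 to 0.102).

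The 2 lysosomal genes called lower (5 with limma on TPM) encode transcription factors of the MiT family, which drive lysosomal genes. Mitf had 237, 147, 171, 224 and 255 CPM at 7 d, against 429, 363 and 388 CPM at 24 h (log2 difference -0.93 ± 0.17, adjusted p = 0.000382). Tfeb had 58.8, 53.2, 62.5, 61.3 and 76.2 CPM at 7 d, against 96.9, 115 and 108 CPM at 24 h (log2 difference -0.77 ± 0.15, adjusted p = 0.000497). For both genes every library of 7 d lay below every library of 24 h. Their relatives Tfec (log2 difference -1.23) and Tfe3 (-0.46), counted among the transcription factors, were lower too. Tfec was not called without replicate 2 of 24 h, or replicates 2 and 3 of 7 d together (adjusted p = 0.0656 to 0.0747). The binding motif of this family, TCACGTG (searched on both strands, where a match and its complement can overlap, with each promoter counted once), was held by 24.1% of 29 promoters of the lysosomal list, against 5.82% of the 13616 promoters of genes tested and 15.8% of 19 promoters of cholesterol synthesis. Of 2252 promoters of genes at least 2-fold higher at 7 d, 4.53% held the motif. A match describes the letters of a window that runs from 250 bases before to 50 bases after the start of the RNA, and is not a site of binding. The promoters of Ctsd and Lamp1 are printed because the abundance of Ctsd leads the change and the window of Lamp1 holds the motif more than once. They come from RefSeq on GRCm38.p6, at chr7:142387778-142388077 on the minus strand and chr8:13158911-13159210 on the plus strand, with the motif in capitals.
Ctsd promoter: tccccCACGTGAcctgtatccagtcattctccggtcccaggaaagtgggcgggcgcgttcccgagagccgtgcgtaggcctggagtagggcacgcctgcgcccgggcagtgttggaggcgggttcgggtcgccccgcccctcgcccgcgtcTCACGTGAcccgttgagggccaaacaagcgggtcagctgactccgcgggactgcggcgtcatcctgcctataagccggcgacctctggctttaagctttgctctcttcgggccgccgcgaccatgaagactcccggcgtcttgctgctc
Lamp1 promoter: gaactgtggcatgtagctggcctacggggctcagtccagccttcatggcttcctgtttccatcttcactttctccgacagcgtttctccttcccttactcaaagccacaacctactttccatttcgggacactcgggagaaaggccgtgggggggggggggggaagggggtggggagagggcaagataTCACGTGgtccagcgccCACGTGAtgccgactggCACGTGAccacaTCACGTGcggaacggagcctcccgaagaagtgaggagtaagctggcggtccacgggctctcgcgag

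Lipid handling changed in its parts. Of 15 tested LXR targets and genes of lipid export, 9 were higher and 1 was lower, with a median log2 difference of 1.47 that was 0.38 with limma on unfiltered TPM. Apoe, apolipoprotein E, which carries cholesterol out of the cell, had 779.7, 289, 870.2, 266 and 1064 CPM at 7 d, against 15.0, 12.2 and 12.7 CPM at 24 h. Replicates 2 and 4 of 7 d were below the other 3, and all 5 lay far above 24 h (log2 difference 5.62 ± 0.76, adjusted p = 2.67e-05). Apoc2, a cofactor of lipoprotein lipase that lies in the same gene cluster, had 5.19, 2.30, 3.72, 2.85 and 3.97 CPM at 7 d, against 0.128, 0.0853 and 0.0859 CPM at 24 h (log2 difference 5.10 ± 0.51, adjusted p = 7.31e-07). Abca9, a transporter regulated by cholesterol in macrophages, had 269, 97.7, 136, 264 and 341 CPM at 7 d, against 33.4, 39.8 and 46.8 CPM at 24 h (log2 difference 2.47 ± 0.37, adjusted p = 5.10e-05). Scd2, a fatty acid desaturase, had 268, 40.1, 63.3, 172 and 255 CPM at 7 d, against 15.3, 21.9 and 17.5 CPM at 24 h, lowest in replicates 2 and 3 of 7 d (log2 difference 3.13 ± 0.56, adjusted p = 0.000323). Ch25h, which makes 25-hydroxycholesterol, had 29.6, 61.1, 19.8, 25.5 and 10.1 CPM at 7 d, against 4.99, 2.09 and 3.27 CPM at 24 h (log2 difference 3.08 ± 0.62, adjusted p = 0.000819). Abca1, the cholesterol exporter, had 299.7, 76.1, 130.1, 141 and 252 CPM at 7 d, against 39.9, 124 and 30.5 CPM at 24 h. Replicate 2 of 24 h lay within the range of 7 d (log2 difference 1.47 ± 0.46, adjusted p = 0.0151). It was not called without replicate 1 or 3 of 24 h (adjusted p = 0.082 to 0.0821). Nr1h2, which encodes the LXR beta receptor itself, had 97.3, 92.0, 106, 94.9 and 104 CPM at 7 d, against 155, 175 and 152 CPM at 24 h, and fell (log2 difference -0.70 ± 0.15, adjusted p = 0.00143). The genes Nr1h3 (LXR alpha), Mylip and Fasn were not called (adjusted p = 0.574, 0.519 and 0.873).

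The enzymes that make cholesterol showed no common direction, with 6 of 24 higher (25%, near the 27.2% of all genes), 3 lower and a median log2 difference of 0.25 that turned negative under 2 of 18 other settings. Of the 3 lower, 1 was called without replicate 1 or 2 of 24 h or replicate 2 or 3 of 7 d, and 0 without replicates 2 and 3 of 7 d together. The sterol response motif TCACNCCAC was held by 5.26% of 19 promoters of the list and by 1.14% of those of genes tested. Dhcr7, the last enzyme of one branch, had 78.9, 47.6, 57.9, 56.5 and 79.3 CPM at 7 d, against 14.4, 16.6 and 13.7 CPM at 24 h (log2 difference 2.10 ± 0.20, adjusted p = 4.89e-07). Fdft1, squalene synthase, had 242, 333, 373, 183 and 246 CPM at 7 d, against 80.8, 89.5 and 76.4 CPM at 24 h (log2 difference 1.74 ± 0.20, adjusted p = 3.27e-06). Mvk (log2 difference 1.16), Ebp (0.73), Fdps (0.80) and Tm7sf2 (1.01) were the other 4. Srebf2, the factor that drives the pathway, had 337, 220.4, 264, 323 and 353 CPM at 7 d, against 422, 431 and 365 CPM at 24 h, and was lower (log2 difference -0.44 ± 0.17, adjusted p = 0.0429). For Srebf2 the call was lost without replicate 1 or 2 of 24 h, or replicate 2 or 3 of 7 d, or replicates 2 and 3 of 7 d together (adjusted p = 0.0863 to 0.192), and for Fdps without replicate 1 or 3 of 24 h (adjusted p = 0.0906 to 0.0923).

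Of 20 genes of lipid uptake and storage, 9 were higher (45%, against 27.2% of all genes) and 4 lower (20%, near 21.6%). Plin2, which coats lipid droplets, had 3017, 2664, 2589, 3122 and 2969 CPM at 7 d, against 1223, 1221 and 1079 CPM at 24 h (log2 difference 1.29 ± 0.17, adjusted p = 1.42e-05). Fabp5, a fatty acid carrier, had 26.3, 12.1, 16.9, 20.5 and 27.5 CPM at 7 d, against 0.811, 0.384 and 0.387 CPM at 24 h (log2 difference 5.28 ± 0.55, adjusted p = 1.16e-06). Fabp4 had 8.36, 6.14, 7.80, 5.11 and 6.15 CPM at 7 d, against 0.0854, 0.0427 and 0.129 CPM at 24 h (log2 difference 6.20 ± 0.66, adjusted p = 1.31e-06). Npc2, which moves cholesterol out of the lysosome, had 943, 1062, 1230.2, 931 and 893 CPM at 7 d, against 519, 428 and 444 CPM at 24 h (log2 difference 1.13 ± 0.17, adjusted p = 4.07e-05). For these 4 genes no library of 7 d overlapped with one of 24 h. The enzymes that build and break triglyceride went the other way: Dgat1 (log2 difference -0.55), Dgat2 (-2.24), Pnpla2 (-0.60) and its inhibitor Hilpda (-1.14) were lower. Pnpla2 was not called without replicate 2 or 3 of 24 h, or replicate 1, 2, 3 or 4 of 7 d, or replicates 2 and 3 of 7 d together (adjusted p = 0.0545 to 0.171). Lipa, lysosomal acid lipase, had 1239 ± 221 CPM at 7 d and 1545 ± 118 CPM at 24 h (SD) and was not called (adjusted p = 0.0975).

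Of 24 genes that define disease-associated microglia in mouse models of neurodegeneration, 12 were higher (50%, against 27.2% of all genes). The 6 lower made 25%, near the 21.6% of all genes. The median log2 difference was 0.78, and 0.44 without replicates 2 and 3 of 7 d. Gpnmb, a lysosomal glycoprotein, had 3421, 1965, 2612, 2624 and 3771 CPM at 7 d, against 44.7, 40.9 and 30.2 CPM at 24 h (log2 difference 6.22 ± 0.57, adjusted p = 4.10e-07). Spp1, osteopontin, had 557, 1216, 1109.9, 516 and 157 CPM at 7 d, against 18.2, 5.84 and 11.3 CPM at 24 h, lowest in replicate 5 and highest in replicates 2 and 3 of 7 d (log2 difference 5.92 ± 0.73, adjusted p = 1.04e-05). Timp2, an inhibitor of metalloproteinases, had 535, 387, 472, 429 and 586 CPM at 7 d, against 64.5, 71.7 and 67.2 CPM at 24 h (log2 difference 2.83 ± 0.19, adjusted p = 1.07e-08). Trem2, the lipid-sensing receptor of this state, had 679.5, 958, 1195, 687 and 890.0 CPM at 7 d, against 276, 271 and 312 CPM at 24 h (log2 difference 1.62 ± 0.23, adjusted p = 2.29e-05). Its adaptor Tyrobp had 775, 1189, 1509, 803 and 865 CPM at 7 d, against 312, 389 and 333 CPM at 24 h (log2 difference 1.58 ± 0.33, adjusted p = 0.000903). Itgax, the integrin CD11c, fell instead with 38.8, 91.3, 117, 18.5 and 61.8 CPM at 7 d, against 744, 541 and 586 CPM at 24 h. Its highest library of 7 d, replicate 3, lay far below the lowest library of 24 h (log2 difference -3.25 ± 0.42, adjusted p = 1.52e-05). Clec7a, Axl, Csf1, Lilrb4a and Fth1 were the other 5 called lower. Fth1 had 10884, 5626, 5454, 11189 and 13022 CPM at 7 d, against 14139, 18468 and 16428 CPM at 24 h (log2 difference -0.82 ± 0.27, adjusted p = 0.0185). It was not called without replicate 2 of 24 h, or replicates 2 and 3 of 7 d together (adjusted p = 0.0699 to 0.0735). Lgals3 had 2108, 1627, 1726, 2209 and 1711 CPM at 7 d, against 2388, 2988 and 2771 CPM at 24 h. It was not called (log2 difference -0.53 ± 0.29, adjusted p = 0.14) although no libraries overlapped, and in a fit of the 8 libraries alone its adjusted p was 0.00865.

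Proliferation genes gave the highest share of members called higher, 27 of 32 with none lower. The median log2 difference was 2.31, but 1.70 without replicate 2 of 7 d, 1.33 without replicates 2 and 3 of 7 d, and 1.30 with limma on TPM at a pseudocount of 1. Their levels varied widely between the libraries of 7 d. Mki67, which encodes the proliferation marker Ki-67, had 36.0, 151, 48.1, 65.6 and 7.55 CPM at 7 d, against 4.35, 2.64 and 2.54 CPM at 24 h. Replicate 2 of 7 d was the highest and replicate 5 the lowest, and every one lay above 24 h (log2 difference 4.28 ± 0.87, adjusted p = 0.000964). Top2a, the topoisomerase that untangles chromosomes in mitosis, had 22.8, 154, 52.6, 45.2 and 6.02 CPM at 7 d, against 0.427, 0.256 and 0.516 CPM at 24 h, again highest in replicate 2 and lowest in replicate 5 of 7 d (log2 difference 7.12 ± 1.11, adjusted p = 0.000107). Rrm2, a subunit of ribonucleotide reductase, had 6.37, 56.5, 20.4, 12.2 and 1.71 CPM at 7 d, against 0.256, 0.299 and 0.215 CPM at 24 h (log2 difference 6.21 ± 1.12, adjusted p = 0.000368). Mcm6, part of the helicase that opens replication origins, had 70.9, 219.8, 124, 82.5 and 38.3 CPM at 7 d, against 26.7, 23.5 and 25.5 CPM at 24 h (log2 difference 2.09 ± 0.47, adjusted p = 0.00184). E2f1, a factor that turns on genes of S phase, had 20.8, 47.8, 33.4, 26.5 and 15.2 CPM at 7 d, against 3.37, 5.42 and 4.86 CPM at 24 h (log2 difference 2.66 ± 0.39, adjusted p = 4.62e-05). Cenpf and Ccnb1 rested on 1 count each at 24 h and on 1173 and 321 counts at 7 d. Cdk1, the kinase of mitotic entry, had 5.52, 38.4, 16.1, 12.6 and 0.299 CPM at 7 d, against 1.37, 1.02 and 0.387 CPM at 24 h. Replicate 5 of 7 d lay below all of 24 h in this gene (log2 difference 3.97 ± 1.01, adjusted p = 0.00464). The list mean of log2 CPM was 3.03, 5.25, 4.13, 3.70 and 1.71 at 7 d, against 1.11, 1.05 and 1.09 at 24 h, so all 5 libraries lay above and their own spread exceeded 3 log2 units. Pcna and Mcm7, a sliding clamp and a helicase subunit, were not called (adjusted p = 0.543 and 0.168). With limma on unfiltered TPM values the count was 17.

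**Figure D4:**
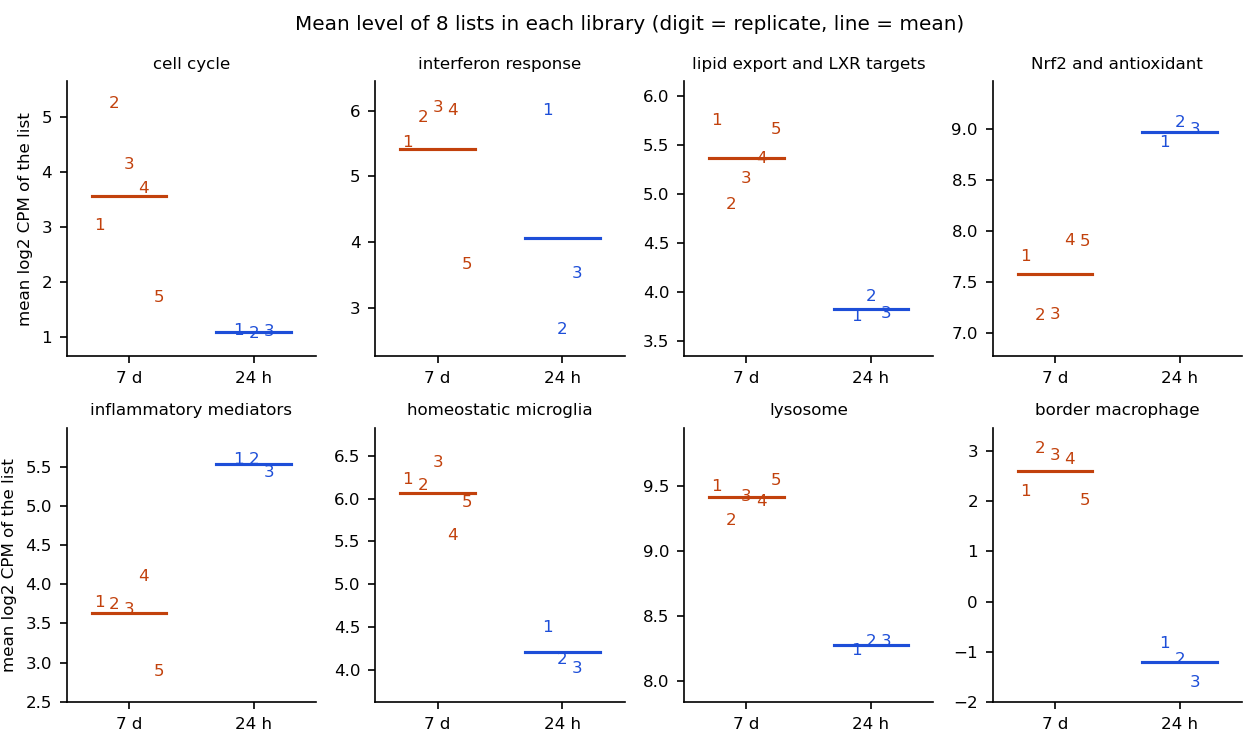
Mean log2 CPM over the tested members of 8 lists in each library of 7 d and of 24 h, where the digit is the replicate number and the line is the mean of the group. The cell cycle, lipid export, homeostatic, lysosome and border macrophage lists lie higher in every library of 7 d, the Nrf2 and inflammatory lists lie lower in every one, and in the interferon list replicate 1 of 24 h, at 6.00, lies among the libraries of 7 d.

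Short motifs that the comparison did not use were counted in the promoters of cell cycle genes. The CHR motif TTTGAAA, bound by the DREAM and MuvB complexes that switch late cell cycle genes, was held by 18.5% of 27 promoters of the list, against 4.22% of those of genes tested. CCAAT, bound by NF-Y, was held by 81.5% against 37.8%, and by 84.2% of 19 promoters of cholesterol synthesis (both strands, motifs of 7 and 5 letters). The E2F motif TTCCCGC was held by 11.1% against 7.9%, and by 16.7% of 18 promoters of the respiratory chain. Promoters of genes at least 2-fold higher at 7 d held CHR in 5.11%, CCAAT in 39.7% and E2F in 7.59%. Kif11, the mitotic kinesin Eg5, had 6.70, 38.6, 14.6, 10.6 and 1.58 CPM at 7 d, against 0.427, 0.427 and 0.816 CPM at 24 h (log2 difference 4.68 ± 1.01, adjusted p = 0.0015). Its promoter and that of Cdk1 are shown as examples that hold both motifs, which stand in capitals, at chr19:37376132-37376431 on the plus strand and chr10:69352863-69353162 on the minus strand of GRCm38.p6.
Kif11 promoter: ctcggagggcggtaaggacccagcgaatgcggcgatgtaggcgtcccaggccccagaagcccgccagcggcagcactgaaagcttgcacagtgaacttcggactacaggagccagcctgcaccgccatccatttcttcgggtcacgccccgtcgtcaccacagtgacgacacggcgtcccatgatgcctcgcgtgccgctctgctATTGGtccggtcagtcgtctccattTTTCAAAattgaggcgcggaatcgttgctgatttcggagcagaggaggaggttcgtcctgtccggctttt
Cdk1 promoter: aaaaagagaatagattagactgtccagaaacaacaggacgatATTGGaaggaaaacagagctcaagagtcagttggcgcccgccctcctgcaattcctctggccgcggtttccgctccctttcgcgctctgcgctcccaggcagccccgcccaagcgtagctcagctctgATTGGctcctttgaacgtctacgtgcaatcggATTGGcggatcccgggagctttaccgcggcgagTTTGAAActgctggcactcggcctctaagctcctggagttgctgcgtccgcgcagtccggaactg

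Inflammatory mediators, which were high at 24 h, were lower at 7 d for 16 of 26 tested and higher for 3, with a median log2 difference of -1.73. Il1b, interleukin 1 beta, had 0.295, 0.343, 0.929, 0.317 and 0 CPM at 7 d, against 56.6, 97.7 and 62.1 CPM at 24 h. It was at 0 counts in replicate 5 of 7 d, rested on 51 counts in all 5 libraries against 5062 in the 3 of 24 h, and was among the 10 largest falls by the same criteria (log2 difference -7.53 ± 0.42, adjusted p = 2.87e-09). Il1a, interleukin 1 alpha, had 1.80, 1.27, 1.37, 2.18 and 2.77 CPM at 7 d, against 55.7, 82.1 and 76.6 CPM at 24 h (log2 difference -5.25 ± 0.41, adjusted p = 9.69e-08). Cxcl2, a chemokine for neutrophils, had 2.91, 0.754, 1.23, 3.80 and 0.597 CPM at 7 d, against 216, 262 and 173 CPM at 24 h (log2 difference -6.87 ± 0.74, adjusted p = 3.07e-06). Ptgs2, the inducible cyclooxygenase, had 23.5, 18.0, 14.5, 49.7 and 36.6 CPM at 7 d, against 619.7, 692 and 658 CPM at 24 h (log2 difference -4.53 ± 0.57, adjusted p = 1.50e-05). Tnf, tumour necrosis factor, had 55.0, 38.2, 31.8, 74.3 and 38.8 CPM at 7 d, against 471, 416 and 435 CPM at 24 h (log2 difference -3.21 ± 0.73, adjusted p = 0.00219). Nlrp3, the sensor of an inflammasome, had 63.0, 91.4, 83.8, 89.6 and 41.9 CPM at 7 d, against 327, 401 and 306 CPM at 24 h (log2 difference -2.22 ± 0.27, adjusted p = 6.42e-06). For these 6 genes all libraries of 7 d lay below all of 24 h. Nfkbia, which holds NF-kB in the cytoplasm, had 131, 69.4, 74.2, 137 and 101 CPM at 7 d, against 417, 448 and 355 CPM at 24 h (log2 difference -1.99 ± 0.33, adjusted p = 0.000159). Tnfaip3, which restrains NF-kB signalling, had a log2 difference of -1.94. Receptors and costimulatory genes of the list that were lower were Tlr2 (log2 difference -1.68), Cd14 (-1.02), Cd83 (-1.85) and Icam1 (-1.32). The NF-kB motif, searched by its letters on both strands, was held by 50% of 22 promoters of the list and by 26.1% of those of genes tested. It was also held by 64.3% of 14 promoters of Fc receptors and complement and 42.1% of 19 of cholesterol synthesis, so it was not most frequent in the inflammatory list. Among promoters of genes at least 2-fold lower at 7 d the share was 26.5%.

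Not every mediator passed the test. Ccl3, a chemokine of activated microglia, had 228, 531, 443, 470.1 and 373 CPM at 7 d, against 1066, 1011 and 1143 CPM at 24 h. Its groups did not overlap, yet it was not called (log2 difference -1.39 ± 0.62, adjusted p = 0.0768), and in a fit of the 8 libraries alone its adjusted p was 0.000795. Ccl4, its neighbour, had 149, 505, 419, 284 and 176 CPM at 7 d, against 567, 476 and 497 CPM at 24 h, and was not called (log2 difference -0.74 ± 0.73, adjusted p = 0.417). Ccl7, Ccl12 and Il18 were called higher, at log2 differences of 3.76, 3.84 and 0.90, with overlapping libraries. Each of these calls was lost in some of the fits that left out libraries. Ccl7 was not called without replicate 1, 2 or 3 of 24 h, or replicate 2 of 7 d, or replicates 2 and 3 of 7 d together (adjusted p = 0.0521 to 0.0849). Ccl12 was not called without replicate 1, 2 or 3 of 24 h, or replicate 2, 3 or 4 of 7 d, or replicates 2 and 3 of 7 d together (adjusted p = 0.0538 to 0.155). For Il18 the call was lost without replicate 2 or 3 of 24 h, or replicate 2 or 3 of 7 d, or replicates 2 and 3 of 7 d together (adjusted p = 0.109 to 0.591).

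Of 23 immediate-early genes, which respond within minutes to stimulation or handling, 11 were lower (47.8%, against 21.6% of all genes) and none higher. The median log2 difference was -1.81. Fosl1, an AP-1 subunit, had 1.51, 0.926, 0.743, 3.52 and 1.28 CPM at 7 d, against 57.0, 76.2 and 58.7 CPM at 24 h (log2 difference -5.33 ± 0.42, adjusted p = 1.02e-07). Egr2, a zinc finger factor, had 9.46, 24.8, 26.0, 13.1 and 18.4 CPM at 7 d, against 582, 518 and 523 CPM at 24 h (log2 difference -4.88 ± 0.91, adjusted p = 0.000472). Fosl2 had 47.5, 32.2, 27.4, 41.6 and 50.4 CPM at 7 d, against 90.7, 155 and 86.9 CPM at 24 h (log2 difference -1.48 ± 0.24, adjusted p = 0.000115). Nr4a3, an orphan nuclear receptor, had 0.331, 0.240, 0.334, 0.238 and 0.555 CPM at 7 d, against 1.62, 5.33 and 3.70 CPM at 24 h (log2 difference -3.38 ± 0.44, adjusted p = 1.20e-05). The other 7 were Junb, Egr3, Ier3, Nr4a1, Zfp36, Btg2 and Dusp1, at log2 differences of -2.26 to -4.49. The AP-1 motif TGANTCA was held by 0 of 25 promoters of the list and by 5.38% of those of genes tested, with 22.7% of 22 promoters of inflammatory mediators and 22.2% of 18 of the interferon response. Among promoters of genes at least 2-fold lower at 7 d the share was 8.27%. Jun and Fos themselves were not called, with 246 ± 67.9 CPM at 7 d and 217 ± 44.0 CPM at 24 h for Jun and 82.3 ± 32.2 CPM at 7 d and 94.1 ± 21.1 CPM at 24 h for Fos (SD). Klf6 had 509 ± 57.8 CPM at 7 d and 901 ± 28.5 CPM at 24 h and Atf3 306 ± 44.6 CPM at 7 d and 628 ± 32.7 CPM at 24 h, with no overlap in either and adjusted p of 0.109 and 0.36. The ex vivo libraries, which enter the model of 17 libraries, had 575 ± 425 CPM of Klf6 and 398 ± 491 CPM of Atf3. In a fit of the 8 libraries alone 19 of the list were called lower, Klf6 and Atf3 among them (adjusted p = 0.000353 and 0.000169). Kdm6b, a demethylase of H3K27 that is induced in activated macrophages, had 5.56, 4.59, 5.72, 6.57 and 7.43 CPM at 7 d, against 260.4, 325 and 268 CPM at 24 h, and was among the 10 largest falls by the same criteria (log2 difference -5.57 ± 0.44, adjusted p = 9.46e-08).

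Heat shock genes gave 3 higher and 4 lower of 18 (16.7% and 22.2%, against 27.2% and 21.6% of all genes), and the 4 lower were Hspa1a, Hspa1b, Hsph1 and Hspb1. Hspa1a, an inducible HSP70, had 0.405, 0.206, 0.334, 0.436 and 0.256 CPM at 7 d, against 13.3, 18.1 and 25.5 CPM at 24 h (log2 difference -5.84 ± 1.11, adjusted p = 0.000561). Its near-identical neighbour Hspa1b had 0.884, 0.103, 0.409, 0.396 and 0.0427 CPM at 7 d, against 11.1, 20.8 and 23.2 CPM at 24 h (log2 difference -5.61 ± 0.91, adjusted p = 0.000148). Reads of these paralogs can be split arbitrarily. Hsph1 had 39.7, 54.0, 47.1, 53.1 and 42.8 CPM at 7 d, against 106, 117 and 144 CPM at 24 h (log2 difference -1.37 ± 0.34, adjusted p = 0.00346). Hspb1 had a log2 difference of -3.03 and was not called without replicates 2 and 3 of 7 d together (adjusted p = 0.0947). Hspe1, a mitochondrial chaperonin, had 14.1, 24.2, 20.2, 15.8 and 10.9 CPM at 7 d, against 6.27, 7.68 and 7.65 CPM at 24 h, and rose (log2 difference 1.24 ± 0.27, adjusted p = 0.00133). Calr, calreticulin of the endoplasmic reticulum, rose as well (log2 difference 0.94). In a fit of the 8 libraries alone 10 members were called lower. The integrated stress response, which slows translation and raises amino acid supply, divided with 5 of 21 higher and 6 lower, near the shares of all genes. The count of those higher ran from 2 (limma on TPM at a pseudocount of 1, and without replicate 1 of 24 h) to 8 (DESeq2). Psat1, an enzyme of serine synthesis, had 125, 158, 142, 76.1 and 141 CPM at 7 d, against 35.4, 22.1 and 27.8 CPM at 24 h, and rose (log2 difference 2.17 ± 0.25, adjusted p = 2.84e-06). Atf4, the factor of the response, fell (log2 difference -1.35), as did the amino acid transporters Slc3a2 (-0.87), Slc7a5 (-1.80) and Slc7a3 (-2.35), Ppp1r15a (-2.10) and Ddit3 (-0.92). Ppp1r15a was not called without replicate 2 or 3 of 24 h, or replicate 2 or 3 of 7 d, or replicates 2 and 3 of 7 d together (adjusted p = 0.0522 to 0.13). Cebpg and Mthfd2 were not called (adjusted p = 0.686 and 0.977).

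The antioxidant genes controlled by Nrf2 gave the highest share of members called lower among the 24 lists. Nrf2 is held inactive by Keap1 and turns on genes of glutathione, thioredoxin and NADPH supply when cells meet oxidants or electrophiles. Of 24 tested, 17 were lower and 2 higher, with a median log2 difference of -1.14. Slc7a11, which imports cystine for glutathione, had 98.9, 7.03, 7.17, 95.0 and 156 CPM at 7 d, against 2390.3, 2253 and 2356 CPM at 24 h. Replicates 2 and 3 of 7 d lay more than 10-fold below the other 3, and all 5 lay far below 24 h (log2 difference -5.00 ± 0.75, adjusted p = 7.66e-05). Gclc, the catalytic subunit of the enzyme that starts glutathione synthesis, had 113, 74.5, 82.9, 114 and 155 CPM at 7 d, against 493, 559 and 598 CPM at 24 h (log2 difference -2.35 ± 0.19, adjusted p = 6.86e-08). Gclm, its regulatory subunit, had 188, 56.6, 63.1, 220.4 and 263 CPM at 7 d, against 783, 915 and 993 CPM at 24 h (log2 difference -2.50 ± 0.39, adjusted p = 8.68e-05). Srxn1, which restores oxidised peroxiredoxin, had 162, 93.2, 95.7, 186 and 191 CPM at 7 d, against 1313, 1402 and 1451 CPM at 24 h (log2 difference -3.25 ± 0.21, adjusted p = 8.21e-09). Prdx1, a peroxiredoxin, had 499, 552, 562, 610.0 and 594 CPM at 7 d, against 2047, 1867 and 2303 CPM at 24 h (log2 difference -1.88 ± 0.17, adjusted p = 1.96e-07). Txnrd1, thioredoxin reductase, had 372, 248, 232, 389 and 432 CPM at 7 d, against 1605, 1579 and 1558 CPM at 24 h (log2 difference -2.24 ± 0.17, adjusted p = 4.29e-08). No library of 7 d reached the range of 24 h in these 6 genes. Hmox1 had 1305, 889.6, 811, 1044 and 1198 CPM at 7 d, against 3276, 5492 and 4932 CPM at 24 h (log2 difference -2.12 ± 0.34, adjusted p = 9.30e-05). Sqstm1, the autophagy receptor p62, had 757, 486, 554, 911 and 816 CPM at 7 d, against 2631, 2838 and 3249 CPM at 24 h (log2 difference -2.04 ± 0.19, adjusted p = 2.61e-07). The enzymes of the pentose phosphate pathway that supply NADPH were lower too, with log2 differences of -0.71 for G6pdx, -1.37 for Pgd, -1.06 for Taldo1 and -0.54 for Tkt. Gpx1 (log2 difference 1.21) and Sod1 (0.99), a peroxidase and a superoxide dismutase, were the 2 called higher, and Sod1 was not called without replicate 1 of 24 h, or replicates 2 and 3 of 7 d together (adjusted p = 0.0636 to 0.102). Nfe2l2, which encodes Nrf2, had 248, 329, 350.5, 285 and 323 CPM at 7 d, against 236, 282 and 265 CPM at 24 h, and was not called (log2 difference 0.23 ± 0.16, adjusted p = 0.233). The list mean of log2 CPM was 7.75, 7.18, 7.18, 7.91 and 7.89 at 7 d, against 8.86, 9.06 and 8.99 at 24 h.

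The antioxidant response element, searched as TGACNNNGC on both strands, was held by 34.6% of 26 promoters of this list and by 14.4% of the promoters of genes tested. It was held by 32% of 25 promoters of the immediate-early list as well. The examples shown are Srxn1 and Gclm, which hold 1 match each on the other strand, in capitals, at chr2:152105274-152105573 and chr3:122245307-122245606 on the plus strand of GRCm38.p6. A promoter without a match only lacks these letters in this window, and other spellings of the element were not searched or marked.
Srxn1 promoter: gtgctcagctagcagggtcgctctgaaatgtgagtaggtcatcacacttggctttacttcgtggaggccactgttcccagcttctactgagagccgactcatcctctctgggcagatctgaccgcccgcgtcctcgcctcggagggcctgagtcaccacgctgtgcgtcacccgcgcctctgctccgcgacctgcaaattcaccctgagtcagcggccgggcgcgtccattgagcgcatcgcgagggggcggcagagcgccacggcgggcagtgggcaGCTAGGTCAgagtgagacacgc
Gclm promoter: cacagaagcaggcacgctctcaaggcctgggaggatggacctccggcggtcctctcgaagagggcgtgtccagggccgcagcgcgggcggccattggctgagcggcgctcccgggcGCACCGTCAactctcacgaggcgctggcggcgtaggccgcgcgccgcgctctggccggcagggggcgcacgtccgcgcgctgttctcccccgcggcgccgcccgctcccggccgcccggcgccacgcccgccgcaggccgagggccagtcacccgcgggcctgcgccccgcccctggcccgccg

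Interferon-stimulated genes differed widely between libraries of the same group. Of 26 tested, 6 were called higher (23.1%, below the 27.2% of all genes) and none lower, with a median log2 difference of 0.75 that was 2.24 without replicate 1 of 24 h. Oas2, a sensor of double-stranded RNA, had 75.4, 72.0, 74.5, 120.4 and 12.9 CPM at 7 d, against 32.3, 0.768 and 2.15 CPM at 24 h. Replicate 1 of 24 h lay within the range of 7 d, and replicate 5 of 7 d was the lowest of its group (log2 difference 2.60 ± 0.94, adjusted p = 0.0321). Ifi204 had 210.2, 235, 276, 252 and 142 CPM at 7 d, against 150.5, 38.2 and 58.1 CPM at 24 h (log2 difference 1.44 ± 0.38, adjusted p = 0.00534). Oas1a had 41.9, 51.7, 55.7, 50.8 and 18.0 CPM at 7 d, against 33.0, 4.27 and 6.53 CPM at 24 h (log2 difference 1.58 ± 0.59, adjusted p = 0.037). Irf7, a regulator of type I interferon, had 54.8, 149.9, 194, 104 and 17.2 CPM at 7 d, against 181, 14.8 and 26.1 CPM at 24 h, and was not called (log2 difference 0.49 ± 0.76, adjusted p = 0.618). Oas2 was not called without replicate 2 or 3 of 24 h, or replicate 2, 3 or 4 of 7 d, or replicates 2 and 3 of 7 d together (adjusted p = 0.0517 to 0.114). For Oas1a the call was lost without replicate 2 or 3 of 24 h, or replicate 1, 2, 3 or 4 of 7 d, or replicates 2 and 3 of 7 d together (adjusted p = 0.0519 to 0.16). Stat2 and Parp14 were not called at all (adjusted p = 0.529 and 0.519). The list mean of log2 CPM was 5.51, 5.89, 6.04, 6.00 and 3.67 at 7 d, against 6.00, 2.68 and 3.53 at 24 h. Without replicate 1 of 24 h 21 members were called higher, without replicate 2 or replicate 3 of 24 h 1 was, without replicate 2, 3 or 4 of 7 d 2 were, and without replicates 2 and 3 of 7 d together 1 was, so the count rests on which libraries are used. The interferon-stimulated response element, searched by its letters on both strands, was held by 55.6% of 18 promoters of the list and 3.15% of those of genes tested. Among promoters of genes at least 2-fold higher at 7 d the share was 3.64%.

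Genes of antigen presentation gave 4 higher and 3 lower of 19 (21.1% and 15.8%), below the 27.2% and 21.6% of all genes, so the members named here stand for themselves and not for the list. Cd74, the invariant chain of MHC class II, had 2.25, 10.1, 13.1, 2.61 and 1.54 CPM at 7 d, against 127, 149 and 143 CPM at 24 h, with replicates 2 and 3 of 7 d above the other 3 (log2 difference -4.55 ± 0.71, adjusted p = 0.000103). Cd86, a costimulatory ligand, had 31.2, 72.0, 107, 41.6 and 46.8 CPM at 7 d, against 203, 219.7 and 212 CPM at 24 h (log2 difference -1.83 ± 0.30, adjusted p = 0.000152). Cd80, its relative, had 2.87, 2.47, 2.86, 4.95 and 3.46 CPM at 7 d, against 4.44, 9.09 and 5.97 CPM at 24 h with overlapping libraries (log2 difference -0.97 ± 0.24, adjusted p = 0.00368). Cd80 was not called without replicate 2 of 24 h (adjusted p = 0.0508). H2-DMb1, which helps to load MHC class II, had 16.9, 26.4, 28.3, 20.2 and 13.5 CPM at 7 d, against 4.14, 3.97 and 2.32 CPM at 24 h (log2 difference 2.60 ± 0.26, adjusted p = 6.33e-07). The class II chains H2-Aa, H2-Ab1 and H2-Eb1 were under 3 CPM on average at both times and were not called. The class I genes H2-D1 and H2-K1 had 1067 ± 251 CPM at 7 d and 794 ± 106 CPM at 24 h and 609.7 ± 185 CPM at 7 d and 426 ± 121 CPM at 24 h (SD, adjusted p = 0.105 and 0.143). Without replicate 1 of 24 h 7 members were called higher, without replicate 2 of 24 h or replicates 2 and 3 of 7 d together 2 were, and without replicate 3 of 24 h 1 was.

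Energy metabolism shifted modestly but in many genes. Of 25 genes of the respiratory chain 19 were higher and none lower, with a median log2 difference of 0.61. Cox6c, a subunit of cytochrome c oxidase, had 32.1, 55.4, 55.4, 41.3 and 36.5 CPM at 7 d, against 9.82, 10.7 and 10.7 CPM at 24 h (log2 difference 2.09 ± 0.34, adjusted p = 0.000105). Cox4i1, another, had 158, 256, 273, 182 and 176 CPM at 7 d, against 68.3, 76.7 and 84.9 CPM at 24 h, with replicates 2 and 3 of 7 d highest (log2 difference 1.45 ± 0.29, adjusted p = 0.000682). Sdhc, a membrane anchor of succinate dehydrogenase, had 106, 153, 154, 106 and 105 CPM at 7 d, against 60.4, 67.7 and 58.0 CPM at 24 h (log2 difference 1.01 ± 0.18, adjusted p = 0.000192). Its partner Sdhd had 89.2, 104, 111, 87.3 and 103 CPM at 7 d, against 55.4, 58.7 and 54.7 CPM at 24 h (log2 difference 0.81 ± 0.12, adjusted p = 3.60e-05). Atp5c1, a subunit of ATP synthase, had 103, 129.5, 129, 107 and 102 CPM at 7 d, against 59.4, 63.3 and 67.2 CPM at 24 h (log2 difference 0.85 ± 0.15, adjusted p = 0.000284). The groups did not overlap in these 5 genes. Atp5b and Uqcrc1 were not called (adjusted p = 0.0601 and 0.164). The count depends on the settings: it was 10 with limma on TPM, 12 without TMM scaling, 12 without replicate 1 of 24 h, and 12 without replicates 2 and 3 of 7 d together.

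Of 25 genes of glycolysis and hypoxia, 11 were higher (44%, against 27.2% of all genes) and 4 lower (16%, against 21.6%). The median log2 difference was 0.41, and without replicate 2 of 24 h 2 were lower. Pdk1, a kinase that keeps pyruvate out of the mitochondrion, had 59.5, 98.8, 73.9, 72.9 and 62.9 CPM at 7 d, against 5.16, 4.65 and 5.16 CPM at 24 h. The lowest library of 7 d held more than 10-fold the highest of 24 h (log2 difference 3.88 ± 0.19, adjusted p = 4.25e-10). Pfkl, the liver-type phosphofructokinase, had 82.8, 118, 101, 94.5 and 95.1 CPM at 7 d, against 27.5, 33.4 and 32.1 CPM at 24 h (log2 difference 1.66 ± 0.17, adjusted p = 9.42e-07). Ldha, lactate dehydrogenase A, rose (log2 difference 1.58), as did Hk1 (0.99), Hk2 (1.22), Tpi1 (1.09), Pgam1 (1.31) and Pfkp (1.68). Slc16a3, which exports lactate, rose as well (1.88). Slc2a1, the glucose transporter GLUT1, had 84.7, 99.9, 82.1, 98.4 and 78.7 CPM at 7 d, against 264, 257 and 228 CPM at 24 h, and fell (log2 difference -1.49 ± 0.13, adjusted p = 1.76e-07). Pkm, pyruvate kinase, had 1295 ± 309.7 CPM at 7 d and 1237 ± 72.6 CPM at 24 h and Hk3 557 ± 95.3 CPM at 7 d and 403 ± 84.9 CPM at 24 h (SD), and neither was called (adjusted p = 0.804 and 0.0515). Glycolytic enzymes have many processed pseudogenes, so their counts are less certain.

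Of 28 genes of migration and adhesion, 10 were higher (35.7%, against 27.2% of all genes) and 7 lower (25%, against 21.6%). Itga6, the integrin alpha 6 chain that binds laminin, had 627, 539.9, 511, 455 and 542 CPM at 7 d, against 67.2, 62.3 and 57.8 CPM at 24 h (log2 difference 3.10 ± 0.15, adjusted p = 4.25e-10). Itga4, the alpha 4 chain, had 28.1, 55.2, 46.8, 33.8 and 32.1 CPM at 7 d, against 1.84, 3.03 and 1.29 CPM at 24 h (log2 difference 4.25 ± 0.65, adjusted p = 7.60e-05). Itgb3, the beta 3 chain, had 26.6, 77.9, 63.3, 29.9 and 30.3 CPM at 7 d, against 5.59, 4.56 and 8.59 CPM at 24 h (log2 difference 2.87 ± 0.38, adjusted p = 1.83e-05). Itga5, the receptor chain for fibronectin, had 445, 278, 265, 345 and 375 CPM at 7 d, against 1228, 1013 and 1081 CPM at 24 h, and fell (log2 difference -1.70 ± 0.18, adjusted p = 1.49e-06). Each of these 4 genes separated the groups completely. Flnc, a muscle-type filamin, had 3.79, 2.23, 2.79, 1.90 and 4.18 CPM at 7 d, against 29.3, 14.9 and 36.2 CPM at 24 h, and fell (log2 difference -3.17 ± 0.27, adjusted p = 1.22e-07). The abundant Flna and Tln1 were not called (adjusted p = 0.0945 and 0.653). Tln2, a talin that links integrins to actin, had the largest rise of all genes that met these criteria for naming, with 127, 159.7, 166, 160.2 and 148 CPM at 7 d, against 0.512, 0.171 and 0.344 CPM at 24 h (log2 difference 8.77 ± 0.28, adjusted p = 2.69e-12). Tmsb4x, thymosin beta 4, which holds actin monomers, had 3028, 5948, 5423, 3240.1 and 3066 CPM at 7 d, against 445, 602 and 457 CPM at 24 h, with replicates 2 and 3 of 7 d highest (log2 difference 3.05 ± 0.35, adjusted p = 3.41e-06).

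Of 20 tested genes of the matrix and its proteases, 8 were higher (40%, against 27.2% of all genes) and 4 lower (20%, against 21.6%). The median log2 difference was 0.63. It was 0.13 without replicates 2 and 3 of 7 d, and 0.12 with limma on TPM at a pseudocount of 1. Mmp12, the macrophage elastase, was abundant at both times with 1944, 2730.4, 2226, 1191 and 2279 CPM at 7 d, against 7646, 6012 and 7379 CPM at 24 h, and fell (log2 difference -1.76 ± 0.41, adjusted p = 0.00241). Mmp13, a collagenase, had 52.8, 87.8, 65.1, 36.9 and 39.4 CPM at 7 d, against 13.4, 6.91 and 8.16 CPM at 24 h, and rose (log2 difference 2.57 ± 0.33, adjusted p = 9.86e-06). Mmp19 had 22.1, 19.0, 18.8, 19.7 and 18.1 CPM at 7 d, against 124, 150.0 and 71.5 CPM at 24 h, and fell (log2 difference -2.56 ± 0.19, adjusted p = 2.84e-08). Serpine2, a protease inhibitor that acts on thrombin, had 716, 1013, 1237, 447 and 829 CPM at 7 d, against 5.51, 3.33 and 5.29 CPM at 24 h (log2 difference 7.49 ± 0.38, adjusted p = 5.27e-10), and no library of 7 d overlapped with one of 24 h. Plau, urokinase, had 88.0, 1332, 837, 94.7 and 98.0 CPM at 7 d, against 83.8, 69.5 and 91.0 CPM at 24 h. Replicates 2 and 3 of 7 d were far above the rest (log2 difference 2.59 ± 0.82, adjusted p = 0.0169). The gene was not called without replicate 1, 2 or 3 of 24 h, or replicate 2 of 7 d, or replicates 2 and 3 of 7 d together (adjusted p = 0.0501 to 0.321). Its receptor gene Plaur had 30.8, 163, 111, 31.6 and 27.5 CPM at 7 d, against 168, 159 and 153 CPM at 24 h. Replicate 2 of 7 d lay within the range of 24 h, and the other 4 lay below it, replicates 1, 4 and 5 the furthest (log2 difference -1.13 ± 0.48, adjusted p = 0.0616), and without replicates 2 and 3 the adjusted p of the difference was 1.20e-07.

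Genes of multinucleated, osteoclast-like macrophages did not move as a unit, with 4 of 12 higher and 4 lower. Each is 33.3%, against 27.2% higher and 21.6% lower of all genes. Dcstamp, a membrane protein needed for fusion, had 0.442, 0.686, 0.223, 0.198 and 0.427 CPM at 7 d, against 174, 151 and 108 CPM at 24 h, the largest fall of those named (log2 difference -8.48 ± 0.30, adjusted p = 8.42e-12). Ocstamp, its partner, had 0.0368, 0.343, 0.186, 0 and 0 CPM at 7 d, against 6.45, 4.56 and 5.11 CPM at 24 h (log2 difference -5.42 ± 0.49, adjusted p = 2.95e-07). Src, a kinase of osteoclast function, had 33.0, 21.1, 24.3, 34.3 and 29.0 CPM at 7 d, against 126, 135 and 115 CPM at 24 h, and fell (log2 difference -2.15 ± 0.16, adjusted p = 2.96e-08). Atp6v0d2, Itgb3, Ctsk (log2 difference 2.39) and Tnfrsf11a (0.64), the receptor RANK, were higher. Nfatc1, the lead factor of osteoclasts, and Acp5, their acid phosphatase, were not called (adjusted p = 0.577 and 0.434).

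No TGFβ was added to these cultures, and the genes of its pathway moved in both directions. Among receptors, Tgfbr2, the type II receptor, had 699, 752, 952, 656 and 827 CPM at 7 d, against 107, 114 and 114 CPM at 24 h, and rose (log2 difference 2.80 ± 0.15, adjusted p = 1.06e-09). The coreceptor Eng rose as well (log2 difference 1.78). Tgfbr1 fell, as given above. Among inhibitory SMADs, Smad6 had 10.6, 7.85, 8.92, 10.6 and 5.29 CPM at 7 d, against 3.80, 3.92 and 3.31 CPM at 24 h, and rose (log2 difference 1.23 ± 0.25, adjusted p = 0.000637). Smad7 had 52.4, 54.7, 60.8, 38.1 and 40.3 CPM at 7 d, against 78.3, 69.0 and 73.6 CPM at 24 h, and fell (log2 difference -0.58 ± 0.17, adjusted p = 0.0111). Lrrc32, the protein GARP that holds latent TGFβ at the surface of regulatory T cells and platelets, had 0.258, 0.274, 0.223, 0.158 and 0.299 CPM at 7 d, against 92.2, 83.7 and 71.6 CPM at 24 h, and was among the 10 largest falls by the same criteria (log2 difference -8.38 ± 0.27, adjusted p = 2.69e-12). Its counterpart of microglia, Nrros, was higher (log2 difference 0.67). The ligand gene Tgfb1 had 404, 396, 411, 417 and 471 CPM at 7 d, against 333, 380.3 and 312 CPM at 24 h. Its groups did not overlap, but it was not called (log2 difference 0.30 ± 0.13, adjusted p = 0.0664). Over the list 7 of 22 were higher and 6 lower, near the shares of all genes, and with limma on TPM at a pseudocount of 1 the count of those higher was 4.

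Large rises outside the lists included Wfdc17, a secreted protein of activated macrophages, with 152, 131, 139, 214 and 163 CPM at 7 d, against 0.683, 0.640 and 0.645 CPM at 24 h (log2 difference 7.92 ± 0.39, adjusted p = 4.74e-10). Igfbp4, a binding protein of insulin-like growth factors, had 44.7, 36.4, 19.1, 55.6 and 21.4 CPM at 7 d, against 0.0854, 0.128 and 0.129 CPM at 24 h (log2 difference 8.21 ± 0.54, adjusted p = 9.55e-09). Folr2, a folate receptor of tissue macrophages, had 39.0, 68.6, 41.5, 81.3 and 21.5 CPM at 7 d, against 0.640, 0.427 and 0.430 CPM at 24 h (log2 difference 6.64 ± 0.63, adjusted p = 6.33e-07). Rnase4, a secreted ribonuclease, had 124, 255, 254, 67.9 and 114 CPM at 7 d, against 2.09, 1.92 and 1.12 CPM at 24 h (log2 difference 6.57 ± 0.52, adjusted p = 8.46e-08). Qpct, which forms pyroglutamate at the ends of peptides, had 16.2, 43.1, 35.4, 17.2 and 17.1 CPM at 7 d, against 0.213, 0.0853 and 0.0430 CPM at 24 h (log2 difference 7.75 ± 0.62, adjusted p = 6.28e-08). Asb10 had 17.2, 40.6, 58.0, 15.2 and 27.1 CPM at 7 d, against 0.128, 0.0853 and 0.0859 CPM at 24 h (log2 difference 8.23 ± 0.69, adjusted p = 1.39e-07). For these 6 genes no library of 7 d came near the range of 24 h. Lyz2 had 10868, 4550.2, 4089, 10499.6 and 8884 CPM at 7 d, against 187, 286 and 175 CPM at 24 h. Replicates 2 and 3 of 7 d lay below the other 3, and all were far above 24 h (log2 difference 5.17 ± 0.50, adjusted p = 6.58e-07). Mpeg1, perforin-2, had 9432, 4937, 5624, 7822 and 8806 CPM at 7 d, against 3323, 2608 and 2875 CPM at 24 h (log2 difference 1.32 ± 0.20, adjusted p = 5.83e-05). Lrp1, a large endocytic receptor of apolipoprotein E, had 8705, 4912, 4975, 7766 and 9022 CPM at 7 d, against 3381, 3264 and 3342 CPM at 24 h (log2 difference 1.09 ± 0.27, adjusted p = 0.00364).

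Among falls outside the lists, Gpr132, a receptor for oxidised fatty acids and lactate, had 0.184, 0.480, 0.223, 0.238 and 0.299 CPM at 7 d, against 59.5, 72.0 and 43.2 CPM at 24 h (log2 difference -7.64 ± 0.34, adjusted p = 1.68e-10). Neat1, the long noncoding RNA that builds paraspeckles, had 855, 1029, 1071, 845 and 520.4 CPM at 7 d, against 5526, 5925 and 6137 CPM at 24 h (log2 difference -2.76 ± 0.25, adjusted p = 1.99e-07). Tnfrsf1b, the TNF receptor 2, had 869.7, 513, 628, 704 and 840.1 CPM at 7 d, against 3309, 3137 and 2841 CPM at 24 h (log2 difference -2.12 ± 0.16, adjusted p = 3.94e-08). Ccl9, a chemokine of myeloid cells, had 993, 950.2, 689, 1405 and 711 CPM at 7 d, against 3239.7, 3189 and 2455 CPM at 24 h (log2 difference -1.64 ± 0.43, adjusted p = 0.00578). In each of these 4 genes all libraries of 7 d lay below all of 24 h.

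Markers of other cell types were checked because plated cells could hold more than microglia. The 8 markers of macrophages at brain borders had summed levels of 271 to 531 CPM per library at 7 d, against 5.25 to 20.5 CPM at 24 h, and none was at 0 in either group. Of these, 7 were called higher (87.5%, against 27.2% of all genes), and 4 with limma on TPM at a pseudocount of 1. Ms4a7 had 162, 87.8, 111, 155 and 137 CPM at 7 d, against 3.41, 1.75 and 3.39 CPM at 24 h (log2 difference 5.51 ± 0.54, adjusted p = 1.09e-06). Siglec1, the sialoadhesin CD169, had 256, 158, 116, 304 and 77.2 CPM at 7 d, against 15.5, 1.07 and 1.29 CPM at 24 h (log2 difference 4.93 ± 0.83, adjusted p = 0.000208). Pf4 had 6.08, 23.9, 25.6, 7.68 and 8.54 CPM at 7 d, against 0.299, 0.938 and 0.387 CPM at 24 h (log2 difference 4.72 ± 0.96, adjusted p = 0.000862). Some members were scarce: Lyve1 had 6 counts in the 5 libraries of 7 d and 6 in the 3 of 24 h. Cd163 had 129 against 3, F13a1 had 207 against 4, and Cbr2 had 126 against 1. In the fit as reported Cd163, F13a1 and Cbr2 were called higher (adjusted p = 0.034, 0.0127 and 0.0057), and Lyve1 was not called (adjusted p = 0.68). Their calls in fits without libraries are not given here. The summed levels of this list and of the scavenger and lectin genes above were both higher at 7 d. Mrc1 is among these markers and was named with those receptors. In replicate 5 of 7 d the border markers had their lowest sum of that group, 271 CPM. The scavenger and lectin genes summed to 16454 CPM there, near the top of their range of 11960 to 16560 CPM. Their mean log2 CPM, which abundant genes do not dominate, was the lowest of 7 d there, at 5.86 against 5.98 to 6.23. The part of border macrophages in those results was not tested. Summed markers of astrocytes were 9.82 to 12.5 CPM at 7 d and 1.62 to 2.41 CPM at 24 h, with Gfap at 0 in both, 3 of 8 tested higher and 0 lower. Neuronal markers summed to 1.71 to 5.57 CPM at 7 d and 1.83 to 2.71 CPM at 24 h (2 higher and 1 lower of 6 tested). Oligodendrocyte markers summed to 48.8 to 69.2 CPM at 7 d and 25.6 to 35.5 CPM at 24 h (1 and 1 of 6). Endothelial markers summed to 55.4 to 86.8 CPM at 7 d and 42.2 to 48.1 CPM at 24 h (2 and 1 of 4). Markers of mural cells and fibroblasts summed to 2.99 to 20.3 CPM at 7 d and 9.75 to 12.0 CPM at 24 h (0 and 2 of 5). Monocyte markers summed to 4.38 to 6.62 CPM at 7 d and 7.46 to 7.99 CPM at 24 h (0 and 1 of 7). Neutrophil markers summed to 1.82 to 4.90 CPM at 7 d and 2.43 to 13.3 CPM at 24 h (0 and 0 of 8). Choroid and ependymal markers summed to 0.396 to 1.00 CPM at 7 d and 0.811 to 4.00 CPM at 24 h (0 and 2 of 5). Markers of oligodendrocyte precursors summed to 0.555 to 18.2 CPM at 7 d and 5.84 to 8.15 CPM at 24 h (0 and 0 of 1). Among all genes tested 27.2% were higher and 21.6% lower, so such small counts of members called say little about these cell types. Several of the counts changed under other settings. B cells, T and NK cells and erythroid cells each stayed under 3 CPM at both times. Of the B cell markers 1 was tested, and it was called higher. Of the 2 tested for T and NK cells and the 2 for erythroid cells 0 were called. The marker Cldn5 of endothelium and the marker Snap25 of neurons had 0 and 1 counts at 7 d and 3 and 4 counts at 24 h.

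Chromatin was profiled ex vivo and at 7 d, and chromatin of 24 h is not analysed here. Peaks of H3K27ac, a mark of active promoters and enhancers, and of open chromatin by ATAC had been called by the authors on pooled libraries of each condition, so they carry no replicate error, and 1 of the 2 ATAC libraries of the 7 d group is labelled 8 d. A gene was counted where a peak lay within 1 kb of either end of its body on GRCm38.p6, which was possible for 13784 of the 13840 genes tested. An H3K27ac peak present at 7 d and not ex vivo stood at 8.81% of 2269 genes at least 2-fold higher at 7 d, 4.42% of 1244 genes at least 2-fold lower, and 2.99% of 7047 genes not called. A peak present ex vivo and not at 7 d stood at 11.1%, 9.89% and 6.64% of the same classes. For ATAC, peaks of 7 d only stood at 4.58%, 6.19% and 3.21%. By count, H3K27ac peaks of 7 d only were most frequent in the cell cycle list (9 of 32). Next came the interferon response and the scavenger and lectin receptors (7 of 26 and 7 of 23). The disease-associated genes had 6 of 24 and the matrix and proteases 5 of 20. The homeostatic list had 0 such peaks and 6 of ex vivo only among 24 genes, and the lysosomal list had peaks in both conditions at 28 of 30. Among genes not called the shares were 2.99% for 7 d only, 6.64% for ex vivo only and 68.55% for both. Beside 2.99%, a count of 0 among 24 genes says little about the homeostatic list. These shares are descriptions, since peak lists of different total number and length (31349 peaks over 50895589 bases at 7 d and 24520 peaks over 61286046 bases ex vivo for H3K27ac) differ in what they can cover.

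Placed in the whole course, the changes of this step ran in several shapes, which are given as levels because the steps share libraries. C1qa averaged 2222 ± 692 CPM ex vivo, 306 ± 16.9 CPM at 6 h, 89.8 ± 9.46 CPM at 24 h and 1248 ± 195 CPM at 7 d (SD; n = 5, 2, 3 and 5 here and below). Apoe averaged 180.3 ± 142 CPM ex vivo, 25.1 ± 7.99 CPM at 6 h, 13.3 ± 1.49 CPM at 24 h and 654 ± 359 CPM at 7 d. Both were lowest at 24 h among the 4 times, and only Apoe had a higher mean at 7 d than ex vivo. Gpnmb averaged 1.43 ± 1.23 CPM ex vivo, 4.36 ± 2.91 CPM at 6 h, 38.6 ± 7.53 CPM at 24 h and 2879 ± 718 CPM at 7 d. Ctsd averaged 8658 ± 958 CPM ex vivo, 3112 ± 239 CPM at 6 h, 5438 ± 738 CPM at 24 h and 30070.3 ± 4799 CPM at 7 d. Gpnmb had its highest mean at 7 d and its lowest ex vivo. Il1b averaged 4.19 ± 1.06 CPM ex vivo, 453 ± 108 CPM at 6 h, 72.1 ± 22.3 CPM at 24 h and 0.377 ± 0.338 CPM at 7 d. Srxn1 averaged 3.55 ± 0.526 CPM ex vivo, 2674 ± 149 CPM at 6 h, 1388 ± 69.9 CPM at 24 h and 146 ± 47.9 CPM at 7 d. These had their highest mean at 6 h, and Il1b at 7 d was below its ex vivo mean while Srxn1 was above. Hspa1a averaged 344 ± 303 CPM ex vivo, 160.2 ± 17.4 CPM at 6 h, 19.0 ± 6.15 CPM at 24 h and 0.327 ± 0.0971 CPM at 7 d, with its highest mean ex vivo. Lrrc32 averaged 0.0538 ± 0.0964 CPM ex vivo, 289 ± 25.3 CPM at 6 h, 82.5 ± 10.4 CPM at 24 h and 0.242 ± 0.0545 CPM at 7 d. It was thus high at 6 h and 24 h and near 0 at the other times.

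**Figure D5:**
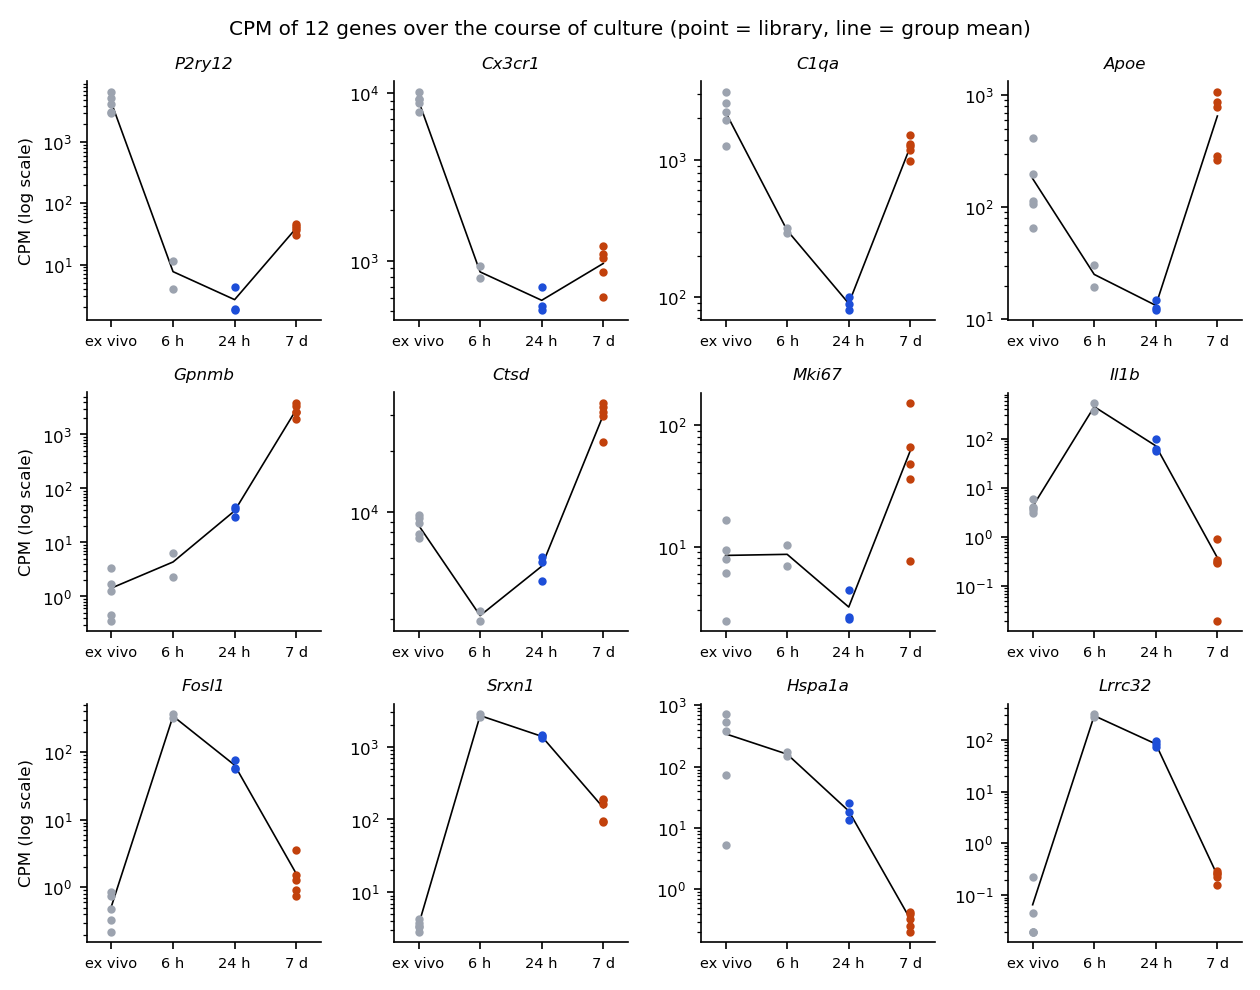
CPM (log scale) of 12 genes in 5 ex vivo libraries, 2 libraries of 6 h, 3 of 24 h and 5 of 7 d, with a line through the group means and values under 0.02 CPM drawn at 0.02. P2ry12, Cx3cr1, C1qa and Apoe have their lowest mean at 24 h, Gpnmb, Ctsd and Mki67 have their highest mean at 7 d, and Il1b, Fosl1, Srxn1 and Lrrc32 have their highest mean at 6 h.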

How the data were processed

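Poly(A) RNA of sorted mouse microglia was sequenced by the authors. The deposited count table holds whole-number counts per gene, and a deposited TPM table holds the same libraries per length. Its columns do not sum to the full total of TPM, so it is a reduced table. Per the submitters' processing notes the tools were HOMER, STAR, Bowtie2, limma, bedtools and R 3.3.1, on mm10, with no role stated for each. Peak lists were deposited as intervals, pooled per condition.

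Columns were matched to samples by name. Counts were scaled with TMM and tested with edgeR 4.0.16 (R 4.3.3) quasi-likelihood F tests in 1 model of 17 microglial libraries, after filterByExpr, with Benjamini-Hochberg adjustment over 13840 genes at 0.05. Higher and lower mean past this threshold, at 7 d relative to 24 h. CPM are on effective library sizes, and the standard error of a log2 difference is its size over the square root of F. Alternatives used limma 3.58.1 on log2(TPM + 1) or log2(TPM + 0.1), DESeq2 1.42.0, other scalings and filters, and fits without libraries. Scripts were tested on simulated data.

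Named genes were 10 fixed genes, the 10 largest log2 rises and 10 falls among genes without overlap that averaged 20 CPM or more in 1 group, the 8 largest rises and falls in CPM, and per list up to 4 called and 2 not called. Members and lists were chosen with earlier results of these data known, and further genes, the CCAAT and antioxidant motifs and the promoters shown were chosen after values were seen. Sequences come from RefSeq (GRCm38.p6), which gave promoters for 26 of 32 cell cycle genes, 24 of 30 lysosomal, 21 of 24 Nrf2 and 17 of 26 interferon genes. The 9 motifs searched are each given for the list they belong to. Genes that share reads with near copies were kept and are uncertain. Some genes that the rule names are not reported here, and they still count in the lists.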

Additional observations from a re-analysis of the deposited data

Results flagged for a closer look

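Within the 5 libraries of 7 d, 9 of 331 values of genes and lists had 1 library far from the other 4. That is a smaller share than the about 1 in 20 that would stand apart by chance. The mean log2 CPM of the interferon response list was 3.67 in replicate 5, below 5.51 to 6.04 in the others. Fcgr1, a receptor for IgG, was also low in replicate 5, at 77.0 CPM, against 168 to 196 CPM in the others. Tgfb1 was high in the same library, at 471 CPM, where the others had 396 to 417 CPM.

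In replicate 4 Cebpb stood at 82.1 CPM, above 34.6 to 44.9 CPM in the others, Fosl1 at 3.52 CPM, above 0.743 to 1.51 CPM, and Cbr2 at 2.46 CPM, above 0.384 to 0.960 CPM. Scarb1 was low in replicate 2 at 98.1 CPM, against 114 to 119.9 CPM. Snap25 in replicate 3 (0.0372 CPM) rested on 1 count where the others had 0. The choroid and ependymal list had a mean log2 CPM of -2.26 in replicate 3, against -2.77 to -2.65 in the others. The cause of these differences was not tested.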

How the results depend on the processing

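Under 18 other settings no named gene changed direction while called, and of 252 named genes that were called, 215 were called in every setting. Every gene called both in the fit as reported and in another setting had the same direction in both. At least 2-fold higher were 2276 genes as reported, 1229 with limma on TPM at a pseudocount of 1, and 1642 at a pseudocount of 0.1. With limma on TPM at a pseudocount of 1 and no filter on low values there were 1199. The cause was not tested. Leaving out 1 library at a time gave 2914 to 3835 genes called higher, 2444 to 2932 called lower, 1924 to 2431 at least 2-fold higher and 1129 to 1270 at least 2-fold lower. Without replicates 2 and 3 of 7 d together 3077 were called higher and 2672 lower. DESeq2 called 3831 higher and 3249 lower. Correlations of deviations of same-numbered libraries from their group means were -0.015 to 0.019. With means of only 3 libraries, these values cannot tell whether the replicate numbers pair the samples. With the replicate number as a block 3409 genes were called higher and 3096 lower.

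With 3 libraries of 24 h the spread of that group is poorly known, and 5 against 3 libraries allow no 2-sided exact p below 0.0357. Genes under about 1 CPM at either time rest on few counts. Lists whose count depended on single libraries included the interferon, antigen presentation, integrated stress response and inflammatory genes called higher.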

Other observations

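Among genes outside the lists that separated replicates 2 and 3 of 7 d from replicates 1, 4 and 5, chosen after their values were seen, Slco4a1, an organic anion transporter, had 396, 13.3, 10.3, 434 and 267 CPM at 7 d, against 161, 206 and 138 CPM at 24 h. Its levels in replicates 2 and 3 were far below those in the other 3 libraries of 7 d.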
